A study of Mus musculus with 9 samples.

Results

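Mouse lung explants that had spent 72 h in culture without drug were compared with embryonic lungs taken fresh at stage E11.5. Each group held 3 RNA-seq libraries, so 6 of the 9 libraries of the series enter the comparison. The remaining 3, explants kept with the compound EPZ5676, entered the low-count filter, the scaling and the estimate of each gene's spread, and are not compared here. Of 55286 genes in the deposited tables, 15158 passed a filter on low counts, and all of these were compared. Both groups are described as wild-type and as lung tissue, with no transgene and no drug in either. The labels say nothing of strain, culture medium, pooling of embryos, or whether each library is its own embryo or culture. What the p-values weigh is therefore library-to-library spread, and some of it may be technical. No lung that had developed for the same time without culture was part of the comparison, so the effect of culture and the effect of 72 h of development cannot be told apart.

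At E11.5 the mouse lung is a small tree of endodermal tubes inside a mesenchyme that holds a forming vessel bed. The epithelial tips divide and branch under FGF10 from the mesenchyme, while SHH, BMP4, WNT and retinoic acid signals pass between the layers. Explants of this stage can keep branching in culture, which makes them a common model of lung growth. They do so without blood flow, and so without a supply of circulating cells.

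Values are deposited TPM (an abundance per transcript length, scaled to a fixed total in each library), given for replicates 1, 2 and 3 of each group in that order. Log2 fold changes are explants minus fresh lung with their SE (n = 3 per group), fitted on counts with a small prior count, and adjusted p-values come from edgeR's quasi-likelihood test over all genes tested. "Rose" and "fell" mean an adjusted p under 0.05. Where a group had no counts for a gene, the fold is a bound set by a floor of 3 counts per library. Where it had 1 to 3, the fold of the summed counts is given with a 95% counting interval. Bounds and intervals cover counting error only. Fold changes from counts and from TPM were compared for the 13668 genes with a mean of at least 1 TPM in both groups. They differed by more than 0.5 on the log2 scale for 244 of these (1.79%), among them Syp and Tap1 below. Aplnr, Ltbp2, Mmp12, Myh7, Fgf1, Pparg and Col4a3 below are among those that also differed by more than 0.5, but had a mean under 1 TPM in a group. TPM also divides by the length of the transcripts assigned, and the cause of the differences was not tested. RNA came from whole tissue, in which fewer cells of a type and less RNA per cell cannot be told apart.

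Genes that mark lung were present in all 6 libraries. Nkx2-1, the transcription factor that marks lung endoderm, was at 37.6, 38.7 and 30.1 TPM in fresh lung and 78.2, 75.4 and 71.7 TPM in the explants. The libraries held 6509563 to 9861452 counts, the most in Control 1. On principal components of log2 CPM (counts scaled by library size), the groups separated on the first (65.5% of variance), and the second, with 14.9%, ran from Control 1 to Control 3. Fresh lungs had a biological coefficient of variation of 11% and explants one of 24.5%, so the explants were the noisier group. Xist, the RNA of the inactive X, had 281 TPM in Control 1, 278 in Control 2 and 0.25 in Control 3. The Y-linked Ddx3y was at 0, 0.08 and 45.35 TPM in Control 1, 2 and 3. Among fresh libraries, E11.5 1 held Xist at 284 TPM and Ddx3y at 0. The fresh libraries E11.5 2 and E11.5 3 held both Xist (143 and 72.5 TPM) and Ddx3y (20.0 and 30.2 TPM). Neither gene passed the test. The number of embryos per library may differ between the groups, and its part in their unequal spread was not tested. Control 1 also stood apart in genes of liver, heart muscle and cartilage, and values without it are given beside the results it touches.

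Of the 15158 genes tested, 3202 rose (21.1%) and 2509 fell (16.6%), 5711 in all (37.7%). The rises were the larger changes. Among genes that passed, the median log2 fold change was 0.99 for those that rose and -0.61 for those that fell, and the median over all genes tested was 0.02. At least 4-fold changes numbered 641 up and 215 down, and at least 16-fold changes 111 up and 39 down. The libraries of the groups did not overlap for 7786 genes (51.4%), of which 5612 also passed. With a single fresh library left out, the count that fell was 1666 without E11.5 2 and 1648 without E11.5 3.

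**Figure D1:**
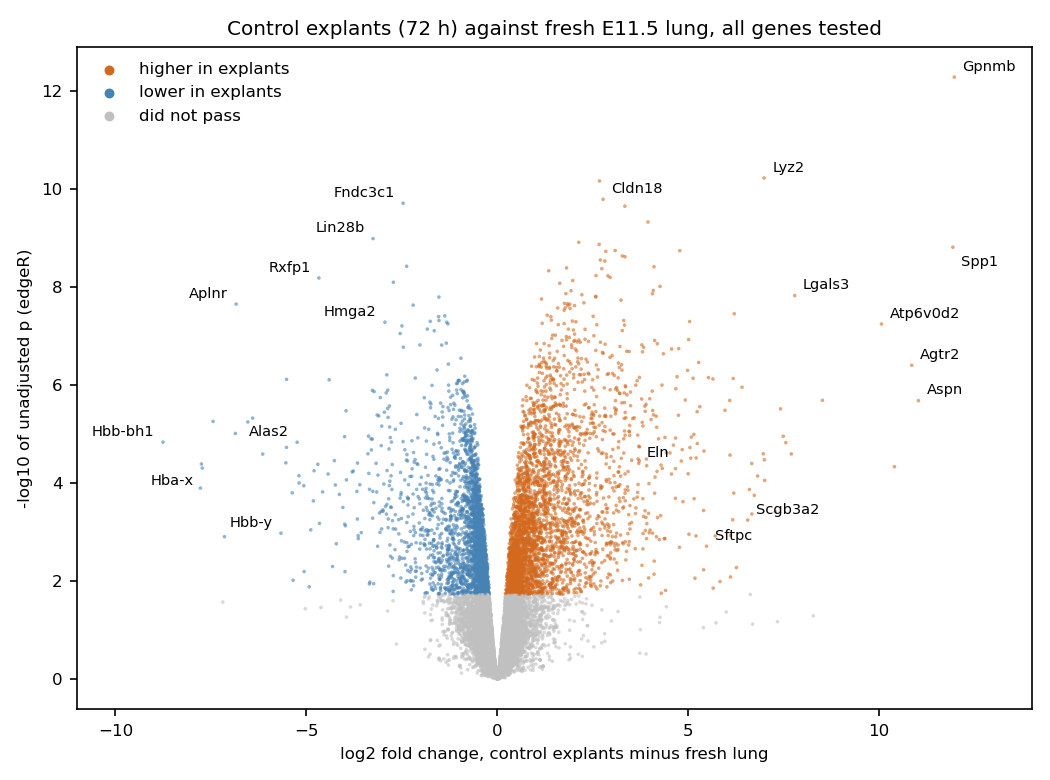
Each point is 1 of the 15158 genes tested, with the log2 fold change of control explants minus fresh lung on the x axis and -log10 of the unadjusted edgeR p on the y axis. Orange points rose (3202), blue points fell (2509) and grey points did not pass; positions of genes with no counts in a group (Aspn, Agtr2, Atp6v0d2) depend on the prior count. Phagocyte genes such as Gpnmb, Spp1 and Lyz2 stand at the far right and embryonic globins such as Hbb-bh1 at the far left.

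The gene with the smallest p and the largest fitted rise was Gpnmb (chromosome 6, 49036546 to 49070929, GRCm38), a membrane glycoprotein of lysosome-rich phagocytes and pigment cells. It was at 0.13, 0.21 and 0.10 TPM in fresh lung and 612, 397 and 433 TPM in the explants (log2 fold change 11.96 ± 0.30, adjusted p = 8.0e-09). Spp1, the secreted phosphoprotein osteopontin (chromosome 5, 104435118 to 104441050), was at 0.18, 0.19 and 0.19 TPM in fresh lung and 650.0, 626 and 1016 TPM in the explants (3 counts over the fresh libraries, 4137-fold higher, counting interval 1416 to 20061, adjusted p = 2.1e-06). Lgals3, the galactose-binding lectin galectin-3, was at 1.12, 3.0 and 1.02 TPM in fresh lung and 215, 120.0 and 240.3 TPM in the explants (log2 fold change 7.79 ± 0.43, adjusted p = 6.1e-06). For these 3 genes the lowest explant library was far above the highest fresh one. Overall leaders by fold, TPM or p were taken only from genes whose groups did not overlap.

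Other large rises were of genes with few or no counts in fresh lung. Aspn, a small matrix proteoglycan (chromosome 13, 49544443 to 49567565), was at 0 TPM in all 3 fresh libraries and 21.2, 17.9 and 33.3 TPM in the explants (at least 79.3-fold higher, adjusted p = 9.6e-05). Agtr2, the type 2 receptor for angiotensin II (chromosome X, 21484544 to 21489164), was at 0 TPM in all 3 fresh libraries and 14.1, 12.2 and 18.9 TPM in the explants (at least 70.2-fold higher, adjusted p = 3.7e-05). Scgb3a2, a secretoglobin of airway cells, was at 1.19, 0 and 0 TPM in fresh lung and 23.3, 59.0 and 47.4 TPM in the explants (2 counts over the fresh libraries, 103-fold higher, counting interval 28.5 to 850.3, adjusted p = 0.0038). All 3 were at or near 0 in fresh lung and were seen in every explant library. Chac1, a glutathione-degrading enzyme induced by the stress factor ATF4, was at 0, 0 and 0.16 TPM in fresh lung and 13.1, 13 and 1.25 TPM in the explants (1 count over the fresh libraries, 180.3-fold higher, counting interval 32.4 to 7122, adjusted p = 0.00105). Lypd2, a small surface protein of the Ly6 family, was at 0 TPM in all 3 fresh libraries and 26.6, 14.6 and 7.76 TPM in the explants (at least 7.68-fold higher, adjusted p = 4.5e-04). Control 3 was the lowest explant library for both, and by a wide margin for Chac1.

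Lin28b, described below, and Fndc3c1, Rxfp1 and Calcrl had the smallest p among genes that fell. Fndc3c1, a fibronectin-domain gene on the X chromosome (chromosome X, 106420041 to 106485401), was at 39.6, 50.1 and 49.1 TPM in fresh lung and 8.80, 7.46 and 7.09 TPM in the explants (log2 fold change -2.47 ± 0.11, adjusted p = 5.7e-07). Rxfp1, the relaxin receptor, was at 11.9, 21.5 and 16.5 TPM in fresh lung and 0.84, 0.41 and 0.53 TPM in the explants (log2 fold change -4.67 ± 0.29, adjusted p = 3.7e-06). Calcrl, the receptor for adrenomedullin and CGRP, was at 22.3, 30.2 and 21.1 TPM in fresh lung and 3.92, 3.55 and 2.96 TPM in the explants (log2 fold change -2.38 ± 0.14, adjusted p = 2.9e-06). The explant libraries lay within a narrow band for each of the 3 and well below every fresh library. Among rises, Atp1b1, the beta subunit of the sodium pump, was at 10.3, 12.8 and 13 TPM in fresh lung and 95.5, 72.9 and 62.4 TPM in the explants (log2 fold change 2.68 ± 0.11, adjusted p = 3.5e-07).

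In mean TPM, the largest gains among nuclear genes that passed were of H19, given below, of ribosomal protein genes and of ferritin light chain. Ftl1, the ferritin chain, which stores iron, was at 1164, 1169.8 and 1128 TPM in fresh lung and 3313, 2268 and 2611 TPM in the explants (log2 fold change 1.28 ± 0.12, adjusted p = 3.8e-05). Rps29, of the small ribosomal subunit, was at 1241, 1231 and 1193 TPM in fresh lung and 2187, 2018 and 2509 TPM in the explants (log2 fold change 0.88 ± 0.14, adjusted p = 0.00104). Besides globins, the largest losses were of Ptma, Npm1 and Tmsb10. Ptma, the acidic nuclear protein prothymosin alpha, was at 5409, 6192 and 5733 TPM in fresh lung and 3349, 3788 and 2813 TPM in the explants (log2 fold change -0.76 ± 0.11, adjusted p = 5.5e-04). Tmsb10, an actin-binding thymosin, was at 3082, 2539 and 2349 TPM in fresh lung and 1629.5, 1527 and 1293 TPM in the explants (log2 fold change -0.83 ± 0.11, adjusted p = 2.3e-04). Reads of these genes are shared with many processed pseudogenes, so their levels are estimates of the authors' counting. The groups did not overlap for any of the 4, which the rule that chose these genes required.

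**Figure D2:**
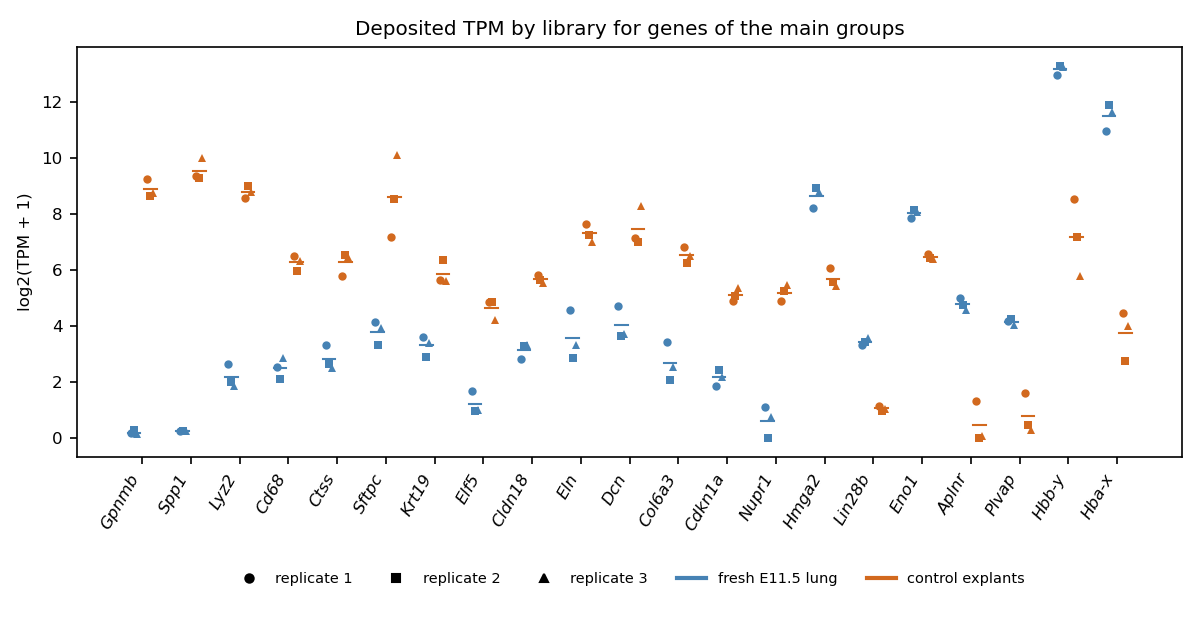
Deposited TPM of 21 genes on a log2(TPM + 1) axis, with 1 point per library (circle, square and triangle for replicates 1, 2 and 3) and a bar at the mean of log2(TPM + 1), in blue for fresh lung and orange for control explants. Gpnmb and Spp1 are near 0 in fresh lung and at 397 TPM or more in every explant library, while Hba-x falls from at least 2007 TPM in fresh lung to at most 21.2 TPM; explant points of Sftpc and Hbb-y are spread widely.

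Macrophage genes rose in the explants. Embryonic macrophages reach the lung from the yolk sac and fetal liver before birth and clear dying cells. Of 26 tested members of the macrophage list 21 rose and 2 fell, against 21.1% and 16.6% of all genes tested, with a median log2 fold change of 1.82. Lyz2, lysozyme M, was at 5.18, 3.05 and 2.61 TPM in fresh lung and 383, 505 and 442 TPM in the explants (log2 fold change 6.98 ± 0.26, adjusted p = 3.5e-07). Cd68, a lysosomal glycoprotein of phagocytes, was at 4.74, 3.31 and 6.29 TPM in fresh lung and 89.9, 62.0 and 79.1 TPM in the explants (log2 fold change 4.10 ± 0.24, adjusted p = 2.9e-06). Tyrobp, a signalling adaptor for activating receptors of myeloid cells, was at 7.44, 6.40 and 6.32 TPM in fresh lung and 150.2, 87.8 and 82.1 TPM in the explants (log2 fold change 4.06 ± 0.27, adjusted p = 6.0e-06). In each case all explant libraries stood far above the highest fresh one.

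The members that fell are markers of particular macrophage states. Cx3cr1, the receptor for fractalkine carried by tissue macrophages and their precursors, was at 7.99, 4.42 and 3.43 TPM in fresh lung and 2.13, 1.40 and 0.51 TPM in the explants (log2 fold change -1.96 ± 0.42, adjusted p = 0.00487). Lyve1, a hyaluronan receptor shared by a macrophage subset and by lymphatic and embryonic vessels, was at 6.32, 1.81 and 3.06 TPM in fresh lung and 0.75, 0.38 and 1.04 TPM in the explants (log2 fold change -2.81 ± 0.68, adjusted p = 0.00873). The list mean in log2 CPM was 2.47, 1.96 and 2.15 in fresh lung and 4.02, 3.94 and 3.76 in the explants. Of the 29 members only Cd163, a haemoglobin scavenger receptor, was at 0 in all fresh libraries, and none was at 0 in all explants. Of the 20 markers of other leukocytes 2 were tested and 1 fell, Kit, the stem cell factor receptor, which mast cells share with other cells. That list had summed TPM 27.2 to 36.0 in fresh lung and 6.79 to 31.7 in the explants. Of its members 5 were at 0 in all 6 libraries, among them the neutrophil gene Ly6g, the mast cell genes Tpsb2 and Cma1 and the T cell gene Cd3e. Others were detected at low levels. S100a9, a calcium-binding protein of neutrophils and monocytes, was at 3.28, 0 and 0.65 TPM in fresh lung and 10.5, 1.33 and 0 TPM in the explants. Its partner S100a8 reached 3.63 TPM, in Control 1, and Prtn3, a neutrophil protease, was at 0.93 to 2.74 TPM in every library. The groups overlapped for these 3 genes, and none passed the low-count filter.

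Genes of phagocytes that take up lipid and cell debris rose as well, and no member is shared with the macrophage list. Of 24 tested members of that list 22 rose and 0 fell, with a median log2 fold change of 2.85. Gpnmb, Spp1 and Lgals3 led it. Plin2, the coat protein of lipid droplets, was at 40.6, 42.4 and 41.2 TPM in fresh lung and 123, 97.7 and 154 TPM in the explants (log2 fold change 1.74 ± 0.25, adjusted p = 6.9e-04). Fabp4, a fatty acid carrier of macrophages, fat cells and vessels, was at 3.22, 0.32 and 0.63 TPM in fresh lung and 19.2, 9.27 and 11.4 TPM in the explants (log2 fold change 3.19 ± 0.58, adjusted p = 0.00187). Mmp12, the elastase of macrophages, was at 0.17, 0.21 and 0.15 TPM in fresh lung and 1.43, 2.94 and 5.40 TPM in the explants (log2 fold change 2.88 ± 0.69, adjusted p = 0.00831). Every explant library exceeded every fresh one for these genes, although Mmp12 stayed at a few TPM, and without E11.5 1, the fresh library with most Fabp4, its log2 fold change was 4.83.

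Lysosomal genes rose almost as a whole. Lysosomes break down material taken up by phagocytosis and autophagy, with cathepsin proteases, glycosidases and an acidifying proton pump. Of the 53 members, all of which were tested, 50 rose and 0 fell, with a median log2 fold change of 1.23. Atp6v0d2, a proton pump subunit of macrophages and osteoclasts (chromosome 4, 19876841 to 19922605), was at 0 TPM in all 3 fresh libraries and 16.5, 10.5 and 8.03 TPM in the explants (at least 40.1-fold higher, adjusted p = 1.2e-05). Ctss, cathepsin S of antigen-presenting cells, was at 9.06, 5.32 and 4.67 TPM in fresh lung and 54.8, 92.1 and 87.7 TPM in the explants (log2 fold change 3.68 ± 0.52, adjusted p = 0.00119). Enzymes that many cell types express, such as Ctsd, Ctsl and Naglu, passed too. Ctsd and Ctsl are also on the lipid phagocyte list, and Ctss is also on the macrophage list. The macrophage list moved with the lysosomal genes (its summed TPM 116 to 157 in fresh lung and 910.0 to 1064 in the explants). The part of either phagocyte list in the lysosomal rise was not tested.

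Many lysosomal genes carry an E-box, CACGTG, in the promoter, which is the core of the site bound by TFEB and related factors. The palindrome was found in 13 of 42 lysosomal promoters (31.0%), in windows of 250 bases before to 50 bases after the gene start, against 7.24% of 27025 promoters in the RefSeq set and 9.96% of the promoters of tested genes. It was also in 6 of 28 promoters of the ribosome biogenesis list (21.4%), whose genes fell, and in 11.8% of the replication and 8.57% of the mitosis promoters. The CLEAR motif, a longer palindrome around this core, was in 0 of the 42 lysosomal promoters and in 0.359% of all promoters. The 3 promoters shown, with the palindrome in capitals, have a match at differing distances before the gene start. They were taken by size of rise, with genes of a part of the genome left out, so they need not be the largest rises. Ctsd, cathepsin D (log2 fold change 3.34 ± 0.15, adjusted p = 5.7e-07), comes from chr7:142387890-142387955, minus strand. Ctsl, cathepsin L (log2 fold change 2.26 ± 0.25, adjusted p = 1.5e-04), comes from chr13:64370721-64370770, minus strand. Naglu, an N-acetylglucosaminidase (log2 fold change 2.02 ± 0.21, adjusted p = 7.0e-05), comes from chr11:101069991-101070056, plus strand, with positions in GRCm38.p6.
Ctsd: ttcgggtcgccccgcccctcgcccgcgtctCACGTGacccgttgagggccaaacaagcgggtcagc
Ctsl: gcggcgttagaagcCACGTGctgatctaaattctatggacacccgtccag
Naglu: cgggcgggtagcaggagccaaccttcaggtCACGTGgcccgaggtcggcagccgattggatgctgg
These matches describe the sequence, and no binding was measured.

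The CC chemokines Ccl3, Ccl4 and Ccl6 rose, and so did most of the interferon-response genes tested. Of 17 tested chemokine and cytokine genes, from 30 listed, 10 rose and 2 fell. Ccl3 and Ccl4 are attractants for monocytes made by activated macrophages, and Ccl6 is a related mouse chemokine. Ccl3 was at 0.76, 0.39 and 0 TPM in fresh lung and 15.6, 21.4 and 38.4 TPM in the explants (3 counts over the fresh libraries, 64.1-fold higher, counting interval 21.9 to 311, adjusted p = 1.2e-04). Ccl6 was at 0.75, 0.37 and 0.38 TPM in fresh lung and 42.8, 26.6 and 105 TPM in the explants (log2 fold change 7.28 ± 1.18, adjusted p = 0.00288). Both were highest in Control 3, and the groups did not overlap. Il1b, the inflammasome cytokine, was at 0 in all 6 libraries. The falls, of Cxcl12 and its receptor Ackr3, were both lost in the fits without Control 1, Control 2, E11.5 1 or E11.5 2, and 1 remained without E11.5 3.

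Of 17 tested interferon-response and antigen-presentation genes, from 28 listed, 11 rose and 0 fell, with a median log2 fold change of 1.24. The members not tested include Ifit1, Isg15, Mx1, Oas1a and Rsad2, which are widely used markers of an interferon response. All members not tested were at 1.71 TPM or less in every library compared. Ifi27, an interferon-induced mitochondrial protein, was at 3.76, 4.15 and 6.37 TPM in fresh lung and 24.1, 24.9 and 38.1 TPM in the explants (log2 fold change 2.60 ± 0.46, adjusted p = 0.00169). Tap1, the peptide transporter that loads class I molecules, was at 0.87, 0.70 and 1.54 TPM in fresh lung and 3.04, 2.32 and 2.35 TPM in the explants (log2 fold change 1.83 ± 0.40, adjusted p = 0.0047). Both separated the groups, with Tap1 at low levels throughout. Without Control 3, 1 member of this list fell.

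Red cell transcripts fell by large factors. At E11.5 circulating red cells are primitive erythroblasts that still carry nuclei and globin RNA, and an explant receives no new ones. Of 28 tested members of the embryonic erythroid list 25 fell and 1 rose. Hbb-bh1, an embryonic beta-like globin (chromosome 7, 103841637 to 103843164), was at 1223, 3698 and 3219.5 TPM in fresh lung and 5.54, 1.03 and 11.6 TPM in the explants (log2 fold change -8.76 ± 0.83, adjusted p = 3.1e-04). Hba-x, the embryonic zeta globin (chromosome 11, 32276400 to 32278116), was at 2007, 3763 and 3208 TPM in fresh lung and 21.2, 5.77 and 15.2 TPM in the explants (log2 fold change -7.73 ± 0.86, adjusted p = 7.0e-04). The 2 genes were low in every explant library. Hbb-y, the epsilon-type globin, was at 7908, 10019 and 9626 TPM in fresh lung and 372, 142 and 53.9 TPM in the explants (log2 fold change -5.67 ± 1.02, adjusted p = 0.00588). The 7 globins together made up 1.81%, 2.50% and 2.31% of TPM in the fresh libraries and 0.120%, 0.0261% and 0.0113% in Control 1, 2 and 3. Globin genes of a cluster are near copies of each other, so their separate levels are uncertain.

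Nonglobin red cell genes fell as well. Alas2, the first enzyme of haem synthesis in red cells, was at 42.4, 57.4 and 47.0 TPM in fresh lung and 2.91, 1.29 and 0.11 TPM in the explants (log2 fold change -5.24 ± 0.61, adjusted p = 3.1e-04). Hemgn, an erythroid nuclear protein, was at 9.23, 37.2 and 28.9 TPM in fresh lung and 1.51, 0 and 0.10 TPM in the explants (log2 fold change -5.37 ± 0.83, adjusted p = 0.00157). Trim10, a ubiquitin ligase of erythroid cells, was at 6.85, 9.14 and 7.02 TPM in fresh lung and 0.31, 0 and 0.10 TPM in the explants (log2 fold change -5.52 ± 0.55, adjusted p = 5.3e-05). Control 1 held the most residual transcript of these 3, and every explant library was below every fresh one. The median log2 fold change of the list was -3.97, and -6.16 over 29 tested members without Control 1, where Hemgn was at -8.55. The single rise was of Tfrc, the transferrin receptor of all dividing cells, and it was lost without Control 2, E11.5 1, E11.5 2 or E11.5 3 (adjusted p = 0.108, 0.105, 0.0686 and 0.0547).

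Platelet and megakaryocyte genes followed the same direction. Of 8 tested members 6 fell and 1 rose, with a median log2 fold change of -2.92. Ppbp, a platelet chemokine, was at 9.49, 13.3 and 11.8 TPM in fresh lung and 0.18, 0 and 0 TPM in the explants (1 count over the explant libraries, 160.3-fold lower, counting interval 28.8 to 6332, adjusted p = 2.4e-04). Clec1b, the podoplanin receptor of platelets, was at 4.32, 6.99 and 9.58 TPM in fresh lung and 0.25, 0 and 0 TPM in the explants (3 counts over the explant libraries, 30.4-fold lower, counting interval 10.4 to 148, adjusted p = 7.7e-04). Tubb1, the platelet tubulin, was at 2.59, 2.83 and 2.61 TPM in fresh lung and 0.13, 0 and 0 TPM in the explants (1 count over the explant libraries, 50.3-fold lower, counting interval 9.03 to 1987, adjusted p = 9.1e-04). In Control 2 and Control 3 all 3 were listed at 0. The 1 rise, of the granule trafficking gene Nbeal2, was lost without E11.5 2 (adjusted p = 0.0560).

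Endothelial genes fell. Endothelium lines the vessels that grow in with the mesenchyme. Of 36 members, all tested, 25 fell and 0 rose, with a median log2 fold change of -1.88. Aplnr, the apelin receptor of angiogenic and venous endothelium (chromosome 2, 85136225 to 85139923), was at 31.1, 25.8 and 22.9 TPM in fresh lung and 1.51, 0 and 0.06 TPM in the explants (log2 fold change -6.84 ± 0.45, adjusted p = 7.3e-06). Plvap, the protein of fenestral diaphragms, was at 17.3, 18.0 and 15.3 TPM in fresh lung and 2.06, 0.38 and 0.23 TPM in the explants (log2 fold change -4.14 ± 0.69, adjusted p = 0.00166). Tal1, a transcription factor of blood and vessel precursors, was at 5.73, 8.95 and 6.71 TPM in fresh lung and 1.56, 0.49 and 0.15 TPM in the explants (log2 fold change -3.26 ± 0.55, adjusted p = 0.0015). The groups stood clear of each other for the 3, with the most residual signal in Control 1.

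Pecam1, the adhesion molecule CD31, was at 39.3, 29.7 and 29.9 TPM in fresh lung and 13.7, 7.07 and 1.93 TPM in the explants (log2 fold change -2.14 ± 0.58, adjusted p = 0.0219). Its call was lost without Control 2, E11.5 2 or E11.5 3 (adjusted p = 0.0648, 0.0508 and 0.0526), and its explant levels differed several-fold among themselves. The list mean in log2 CPM was 4.31, 4.19 and 4.16 in fresh lung and 3.07, 2.13 and 1.31 in the explants. Without Control 2 the count that fell was 16. Among the 7 tested pericyte genes 1 rose, Cspg4 (NG2), and 2 fell. Pdgfrb, the receptor that pericytes and lung mesenchyme use for PDGF-B, was at 38.8, 43.0 and 37.2 TPM in fresh lung and 31.6, 17.7 and 15.7 TPM in the explants (log2 fold change -0.85 ± 0.19, adjusted p = 0.00676). The other fall, of Cox4i2, was lost in every fit that left out a library, and Higd1b, a defining pericyte gene, was at 0 in all 6 libraries.

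**Figure D3:**
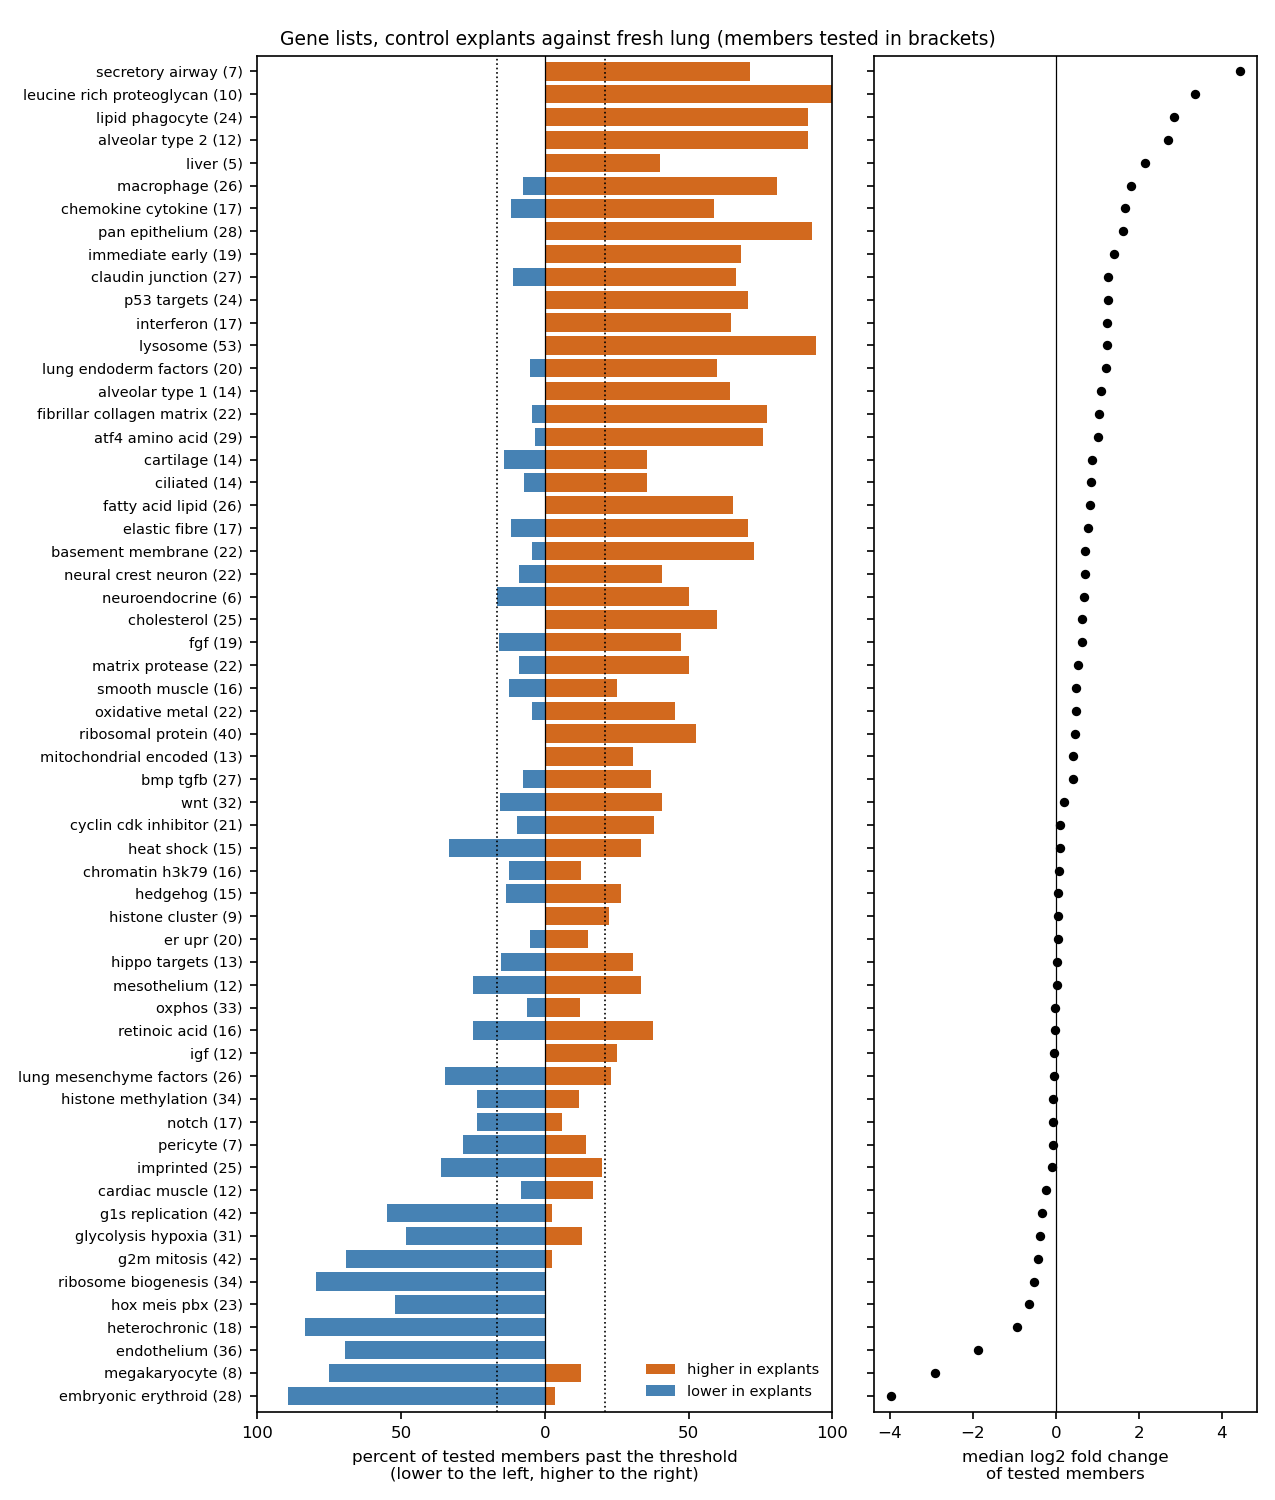
Bars give the percent of tested members of each list that rose (orange, to the right) or fell (blue, to the left), and dots the median log2 fold change, for lists with at least 5 tested members (number in brackets). Dotted lines mark the shares over all genes tested, 21.1% and 16.6%; secretory airway, leucine-rich proteoglycan and lipid phagocyte lists are at the top, and endothelial, megakaryocyte and erythroid lists at the bottom.

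Epithelial genes rose. The epithelial lining of the bud makes keratins, tight junction claudins and E-cadherin at every stage, so these genes track the epithelium as a whole. Of 28 members, all tested, 26 rose and 0 fell, with a median log2 fold change of 1.62. Epcam, the epithelial adhesion molecule, was at 83.1, 80.5 and 75.9 TPM in fresh lung and 217, 212 and 132 TPM in the explants (log2 fold change 1.26 ± 0.12, adjusted p = 5.1e-05). Krt19, a keratin of simple epithelia that mesothelium also makes, was at 11.3, 6.51 and 9.47 TPM in fresh lung and 48.6, 80.0 and 47.3 TPM in the explants (log2 fold change 2.80 ± 0.27, adjusted p = 6.6e-05). It separated the groups and was highest in Control 2. Cldn3, a tight junction claudin, was at 7.34, 5.78 and 5.28 TPM in fresh lung and 54.3, 49.3 and 31.9 TPM in the explants (log2 fold change 2.89 ± 0.18, adjusted p = 3.6e-06). Ehf, an epithelial ETS factor, was at 0.13, 0 and 0 TPM in fresh lung and 4.52, 3.62 and 1.19 TPM in the explants (2 counts over the fresh libraries, 83.7-fold higher, counting interval 23.2 to 692, adjusted p = 4.6e-04). Control 3 had the lowest explant value of all 4, and the groups did not overlap.

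Claudins and junction genes, 4 of them also in the pan-epithelial list, were split. Of 27 tested members 18 rose and 3 fell, with a median log2 fold change of 1.26. Cldn10, a claudin of ion-selective junctions, was at 2.76, 1.07 and 0.89 TPM in fresh lung and 6.43, 29.2 and 14.5 TPM in the explants (log2 fold change 3.42 ± 0.72, adjusted p = 0.00598). Cldn8, a sealing claudin, was at 0.52, 0.11 and 0.53 TPM in fresh lung and 3.87, 5.10 and 1.96 TPM in the explants (log2 fold change 3.21 ± 0.54, adjusted p = 0.0012). Both were low in fresh lung. The members that fell included Tjp1, the scaffold ZO-1 that endothelium and mesenchyme also carry, at 79.7, 100.05 and 98.2 TPM in fresh lung and 63.4, 55.2 and 36.9 TPM in the explants (log2 fold change -0.73 ± 0.10, adjusted p = 4.1e-04). Desmosomal Dsc2 was at 7.45, 10.6 and 9.55 TPM in fresh lung and 5.84, 4.39 and 4.72 TPM in the explants (log2 fold change -0.81 ± 0.16, adjusted p = 0.00291). The third was Cldn5, the claudin of endothelium, whose call was lost without Control 2 (adjusted p = 0.0545).

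Transcription factors of lung endoderm moved unevenly. Of 20 tested, 12 rose and 1 fell, with a median log2 fold change of 1.20. Nkx2-1 rose with the values given above (log2 fold change 1.15 ± 0.11, adjusted p = 3.8e-05). Elf5, an ETS factor of the distal bud tips, was at 2.24, 0.94 and 0.99 TPM in fresh lung and 28.2, 28.3 and 17.5 TPM in the explants (log2 fold change 4.05 ± 0.40, adjusted p = 7.2e-05). Klf5, a zinc finger factor of lung epithelium, was at 1.87, 0.74 and 0.95 TPM in fresh lung and 20.7, 15.7 and 7.65 TPM in the explants (log2 fold change 3.62 ± 0.35, adjusted p = 6.1e-05). Cebpa, a leucine zipper factor of maturing alveolar and airway cells, was at 1.20, 1.34 and 1.16 TPM in fresh lung and 11.9, 10.7 and 4.06 TPM in the explants (log2 fold change 2.81 ± 0.33, adjusted p = 1.5e-04). The fitted rises of these 3 were each larger than those of Nkx2-1 and Epcam. Foxp1, a forkhead repressor, was at 53.7, 57.9 and 53.7 TPM in fresh lung and 39.4, 28.7 and 26.5 TPM in the explants (log2 fold change -0.90 ± 0.12, adjusted p = 2.9e-04), the only member to fall.

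The factors that mark the ends of the airway tree did not pass. Sox9, of the distal tip, was at 22.1, 24.1 and 17.7 TPM in fresh lung and 33.1, 24.9 and 11.7 TPM in the explants (adjusted p = 0.707). Its log2 fold change of 0.14 turned to -0.10 without Control 1. The cartilage list, whose cells also use Sox9, had its highest mean in that library (5.35 log2 CPM), and its part was not tested. Sox2, of the proximal airway, was at 10.4, 6.70 and 7.23 TPM in fresh lung and 36.1, 27.8 and 3.79 TPM in the explants (adjusted p = 0.127). Control 3 lay below the fresh libraries and the other explants above them, and without Control 3 Sox2 passed (log2 fold change 1.93, adjusted p = 0.00273).

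Genes of the alveolar lineages rose, although alveoli form only late in gestation. Type 2 cells make surfactant and type 1 cells form the thin gas exchange surface, and distal tip cells express Sftpc well before. Of 12 tested type 2 genes, from 16 listed, 11 rose and 0 fell, with a median log2 fold change of 2.69. Sftpc, surfactant protein C (chromosome 14, 70520949 to 70524081), was at 16.8, 8.93 and 14.3 TPM in fresh lung and 142, 372 and 1111 TPM in the explants (log2 fold change 5.48 ± 1.09, adjusted p = 0.00915). The rise was clear of the fresh libraries in each explant, but its size differed several-fold among the explants, from Control 1, the lowest, to Control 3. Slc34a2, the phosphate transporter of type 2 cells, was at 0, 0.06 and 0 TPM in fresh lung and 2.54, 1.5 and 1.58 TPM in the explants (1 count over the fresh libraries, 94.9-fold higher, counting interval 17 to 3747, adjusted p = 0.00637). Lyz2, the member with the largest fitted rise, is also a macrophage gene. Lcn2 was at 0 in all libraries.

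Of 14 tested type 1 genes 9 rose and 0 fell, with a median log2 fold change of 1.09. Cldn18, the alveolar claudin (chromosome 9, 99689461 to 99717267), was at 6.08, 8.87 and 9.06 TPM in fresh lung and 55.9, 48.7 and 45.4 TPM in the explants (log2 fold change 2.77 ± 0.12, adjusted p = 5.7e-07). Hopx, a homeodomain protein of type 1 cells, was at 2.18, 2.47 and 2.19 TPM in fresh lung and 8.11, 17.2 and 24.6 TPM in the explants (log2 fold change 2.95 ± 0.48, adjusted p = 0.00113). Clic5, an intracellular channel protein of type 1 and other cells, was at 0.16, 0.32 and 0.36 TPM in fresh lung and 2.35, 1.75 and 2.30 TPM in the explants (log2 fold change 3.07 ± 0.35, adjusted p = 1.2e-04). Cldn18 was even across the explants, whereas Hopx was lowest in Control 1 and highest in Control 3, the order that Sftpc also had. Without Control 3, 1 member fell.

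Airway cell genes appeared at low levels. Of the 14 secretory airway genes 9 were at 0 in all fresh libraries and 4 in all explants, and 7 were tested. Of these 5 rose and 0 fell, with a median log2 fold change of 4.43, or 3.60 with 3 members that had no fresh counts at their bounds. The other rises were of Spdef, a goblet cell factor, and the mucin Muc16. Beside Scgb3a2, Cbr2, a carbonyl reductase of club cells, was at 0 TPM in all 3 fresh libraries and 3.01, 5.61 and 1.47 TPM in the explants (at least 3.80-fold higher, adjusted p = 0.00311). Hp, haptoglobin, which airway and liver cells both secrete, was at 0.36, 0.72 and 0.78 TPM in fresh lung and 6.23, 7.55 and 7.13 TPM in the explants (log2 fold change 3.72 ± 0.52, adjusted p = 3.6e-04). The groups did not overlap, and every explant library held reads of all 3.

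In the ciliated cell list 5 of 14 tested genes rose and 1 fell. The rises were of Gmnc, Mcidas and Ccno, regulators that precede cilia, and of Tppp3 and Hydin, parts of the ciliary apparatus. The call of Mcidas was lost without Control 1, Control 2 or any 1 fresh library (highest adjusted p = 0.0923, without E11.5 2). Gmnc, the coiled-coil protein that starts the multiciliated programme (chromosome 16, 26913553 to 26991652), was at 0.22, 0 and 0 TPM in fresh lung and 4.65, 3.37 and 1.46 TPM in the explants (2 counts over the fresh libraries, 82.9-fold higher, counting interval 22.9 to 684, adjusted p = 9.6e-05). Ccno, a cyclin-like protein needed for centriole amplification, was at 1.09, 0.41 and 0.95 TPM in fresh lung and 4.67, 6.91 and 1.83 TPM in the explants (log2 fold change 2.47 ± 0.62, adjusted p = 0.011). The levels were lowest in Control 3 for both, and still above fresh lung. The median log2 fold change of the list was 0.86, but 0.46 without Control 1 and 0.44 without E11.5 2, each over 15 tested members, and the fall, of Ccdc40, was lost without Control 2, Control 3 or E11.5 2.

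Neuroendocrine cells are the first differentiated cells of the airway. Of 6 tested genes 3 rose, the granule gene Scg3 among them, and 1 fell. Syp, a synaptic vesicle protein, was at 2.30, 1.74 and 0.48 TPM in fresh lung and 3.60, 3.53 and 5.45 TPM in the explants (log2 fold change 2.28 ± 0.41, adjusted p = 0.00179). Uchl1, a ubiquitin hydrolase that neurons share, was at 26.9, 33.8 and 28.1 TPM in fresh lung and 56.1, 38.9 and 49.6 TPM in the explants (log2 fold change 0.76 ± 0.19, adjusted p = 0.00852). Ddc, the amine-forming decarboxylase, moved the other way at 31.3, 37.5 and 27.8 TPM in fresh lung and 12.6, 15.1 and 17.4 TPM in the explants (log2 fold change -1.12 ± 0.16, adjusted p = 4.9e-04). The neuronal list, described further down, rose too, and these markers do not separate neurons from neuroendocrine cells. Of 4 tested basal cell genes 2 rose, Krt15 and Trp63, and 1 fell, with 1 rise without Control 1, Control 2, E11.5 2 or E11.5 3. Krt15 was at 0.48, 1.38 and 1.06 TPM in fresh lung and 5.85, 6.18 and 2.19 TPM in the explants (log2 fold change 2.24 ± 0.47, adjusted p = 0.00388). The defining basal keratin Krt5 was at 0 in all explants, and the fall, of Krt14, was lost without Control 1, Control 3, E11.5 2 or E11.5 3.

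**Figure D4:**
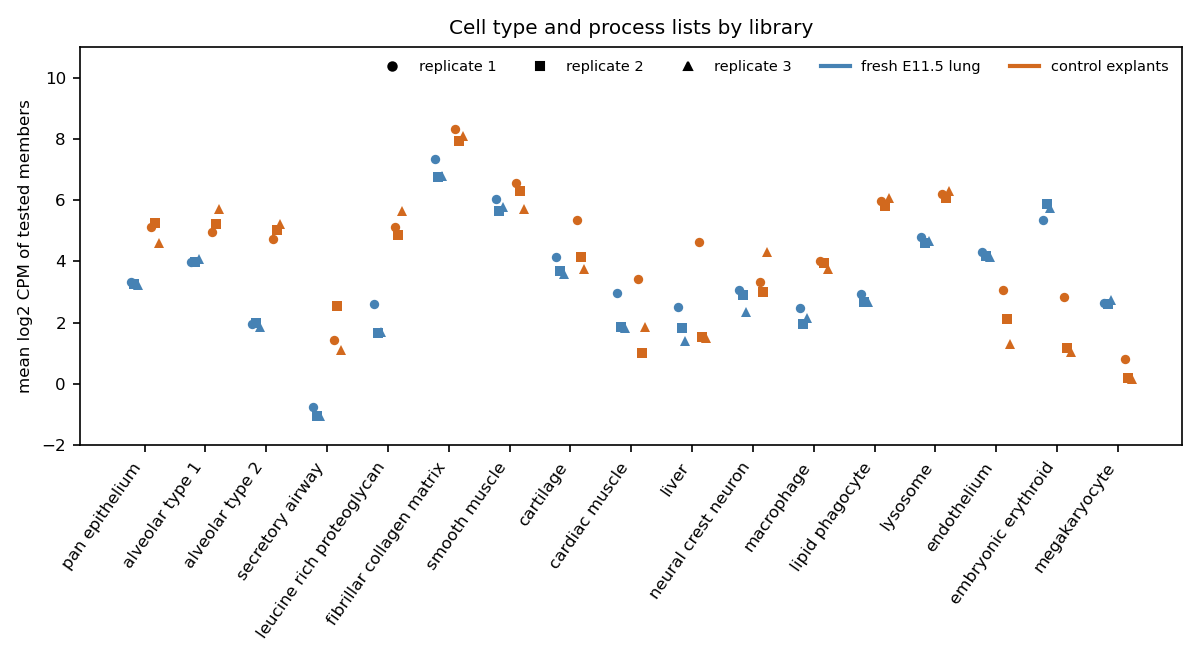
Mean log2 CPM of the tested members of 17 lists, with 1 point per library (circle, square and triangle for replicates 1, 2 and 3), in blue for fresh lung and orange for control explants. Epithelial, proteoglycan, macrophage and lysosomal lists separate upward in all explants and endothelial, erythroid and megakaryocyte lists downward; in the liver, cardiac and cartilage lists Control 1 stands highest (4.62 for liver, against 1.54 and 1.49 in Control 2 and 3) and E11.5 1 is the highest fresh library (2.52 for liver, 2.96 for cardiac).

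Among FGF pathway genes, ligands moved in both directions. FGF10 from the mesenchyme acts on epithelial FGFR2 to drive budding, and FGF9 acts back on the mesenchyme. Of 19 tested genes 9 rose and 3 fell, with a median log2 fold change of 0.62, or 0.36 without Control 3. The ligand Fgf10 was at 9.89, 12.7 and 10.5 TPM in fresh lung and 13.3, 15.8 and 19.3 TPM in the explants and did not pass (adjusted p = 0.131), though the libraries did not overlap. Fgf1, a ligand for all FGF receptors, was at 2.11, 0.41 and 0.36 TPM in fresh lung and 10.02, 18.0 and 23.0 TPM in the explants (log2 fold change 4.74 ± 0.50, adjusted p = 1.4e-04). The rise was present in every explant library. Fgf7, a second ligand of the epithelial receptor, was at 0.99, 0.55 and 0.37 TPM in fresh lung and 1.62, 3.0 and 3.01 TPM in the explants (log2 fold change 2.18 ± 0.53, adjusted p = 0.00857). Fgf9 was at 8.67, 7.47 and 8.43 TPM in fresh lung and 4.91, 2.72 and 3.77 TPM in the explants (log2 fold change -1.26 ± 0.27, adjusted p = 0.00463). So of 4 ligands with values here, 2 rose, 1 fell and 1 did not pass.

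The receptor Fgfr3 was at 16.5, 12.7 and 9.9 TPM in fresh lung and 66.2, 42.0 and 30.2 TPM in the explants (log2 fold change 2.20 ± 0.19, adjusted p = 3.1e-05). Il17rd, the feedback inhibitor SEF, was at 9.82, 14.6 and 12.5 TPM in fresh lung and 4.52, 3.68 and 4.5 TPM in the explants (log2 fold change -1.48 ± 0.16, adjusted p = 1.1e-04). Epithelial markers rose over the same libraries, and their part in the rise of Fgfr3 was not tested. The third fall, of the phosphatase gene Dusp6, was lost in all fits that left out a library but that without Control 2.

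In the BMP and TGF-beta pathways 10 of 27 tested genes rose and 2 fell, Bmp7 and Tgfbr1. The ligand Bmp4, made at bud tips, was at 37.6, 47.0 and 32.2 TPM in fresh lung and 64.7, 55.1 and 72.3 TPM in the explants and did not pass (adjusted p = 0.324). Tgfb3, a TGF-beta ligand, was at 20.1, 12.1 and 12.5 TPM in fresh lung and 53.5, 45.2 and 34.6 TPM in the explants (log2 fold change 1.61 ± 0.21, adjusted p = 3.2e-04). The 2 receptor chains moved apart. Tgfbr2, which binds the ligand, was at 10.7, 12.3 and 10.3 TPM in fresh lung and 38.5, 33.6 and 36.0 TPM in the explants (log2 fold change 1.76 ± 0.12, adjusted p = 7.3e-06). Tgfbr1, the kinase it recruits, was at 64.5, 68.5 and 68.7 TPM in fresh lung and 50.6, 39.5 and 40.8 TPM in the explants (log2 fold change -0.56 ± 0.09, adjusted p = 7.1e-04). Without E11.5 3 the counts were 6 and 1, and 1 fall remained without Control 2 or E11.5 2.

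Hedgehog pathway genes showed no common direction. SHH from the epithelium acts on mesenchymal PTCH1 and its co-receptors. Of 15 tested genes 4 rose and 2 fell, with a median log2 fold change of 0.06. They included the target factors Foxf2, which rose, and Foxf1, which fell. The ligand Shh was at 13, 18.6 and 17.7 TPM in fresh lung and 30.9, 26.1 and 17.9 TPM in the explants (log2 fold change 0.63 ± 0.21, adjusted p = 0.0342). Control 3 lay within the fresh range, and the call was lost in each fit that left out a library except that without Control 3 (highest adjusted p = 0.122, without E11.5 1). Co-receptors present SHH to PTCH1 and did not move together. The co-receptor Boc was at 35.5, 19.9 and 20.3 TPM in fresh lung and 69.7, 40.9 and 67.4 TPM in the explants (log2 fold change 1.30 ± 0.28, adjusted p = 0.00668). The co-receptor Cdon was at 16.4, 12.5 and 14.4 TPM in fresh lung and 37.4, 23.4 and 16.9 TPM in the explants (log2 fold change 0.90 ± 0.19, adjusted p = 0.00505). A further co-receptor, Gas1, was at 34.2, 37.2 and 31.6 TPM in fresh lung and 19.6, 17 and 21.5 TPM in the explants (log2 fold change -0.76 ± 0.17, adjusted p = 0.0061). Gas1 thus fell while the other two rose. The list had 2 rises without Control 2 or any 1 fresh library and 1 fall without Control 2, E11.5 2 or E11.5 3.

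WNT pathway genes moved both ways. WNT2 and WNT2B from the mesenchyme specify lung endoderm, and later WNT signals act on tips and muscle. Of 32 tested genes 13 rose and 5 fell, with a median log2 fold change of 0.20 (0.09 without Control 1, 0.07 without E11.5 1). Among secreted antagonists, Wif1 was at 1.02, 0.66 and 0.36 TPM in fresh lung and 20.4, 9.01 and 3.38 TPM in the explants (log2 fold change 4.12 ± 0.68, adjusted p = 0.00159). Sfrp1 was at 68.9, 60.5 and 60.2 TPM in fresh lung and 20.0, 16.3 and 27.3 TPM in the explants (log2 fold change -1.50 ± 0.23, adjusted p = 0.00103). Sfrp2 was at 106, 109.9 and 89.1 TPM in fresh lung and 33.3, 31.6 and 37.1 TPM in the explants (log2 fold change -1.50 ± 0.22, adjusted p = 7.1e-04). The antagonists therefore did not move together, and no library of either group crossed over. Among agonists, Rspo3, which potentiates WNT at LGR receptors, was at 4.08, 1.40 and 1.43 TPM in fresh lung and 10.9, 6.39 and 7.78 TPM in the explants (log2 fold change 2.13 ± 0.33, adjusted p = 7.1e-04). The ligand Wnt4 was at 1.96, 1.88 and 1.32 TPM in fresh lung and 8.13, 5.99 and 1.87 TPM in the explants (log2 fold change 1.64 ± 0.40, adjusted p = 0.0095), with Control 3 inside the fresh range. The ligands Wnt2b and Wnt11 fell. Lef1, a transcription factor that carries the WNT signal and is often its target, was at 24.2, 34.2 and 31.4 TPM in fresh lung and 10.6, 10.5 and 8.93 TPM in the explants (log2 fold change -1.54 ± 0.18, adjusted p = 1.5e-04). Without E11.5 3, 3 genes fell.

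Of 17 tested Notch pathway genes 1 rose and 4 fell, among them the ligand Jag1 and the target Heyl. Hey2, a Notch target of vessels and smooth muscle, was at 2.99, 2.36 and 1.67 TPM in fresh lung and 0.27, 0.29 and 0.62 TPM in the explants (log2 fold change -2.51 ± 0.52, adjusted p = 0.00359). Mfng, a glycosyltransferase that tunes Notch receptors, was at 9.16, 4.97 and 8.18 TPM in fresh lung and 2.69, 1.21 and 1.69 TPM in the explants (log2 fold change -1.88 ± 0.34, adjusted p = 0.00186). Its relative Rfng was at 10.7, 13.5 and 10.4 TPM in fresh lung and 25.2, 19.8 and 16.2 TPM in the explants (log2 fold change 0.84 ± 0.15, adjusted p = 0.00184). Endothelial genes, which include users of this pathway, fell in the same libraries (summed TPM 606 to 661 in fresh lung and 86.6 to 286 in the explants), and their part in these falls was not tested. The number that fell was 2 without Control 2, Control 3, E11.5 2 or E11.5 3, and 4 rose without Control 3.

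Retinoic acid pathway genes moved both ways, with rises and falls among both the carriers and the synthetic enzymes. Retinol is taken up through STRA6, carried by binding proteins, oxidised by ALDH1A enzymes and cleared by CYP26 enzymes. Stra6, the uptake receptor, was at 20.9, 20.8 and 16.8 TPM in fresh lung and 3.40, 2.69 and 2.07 TPM in the explants (log2 fold change -2.72 ± 0.17, adjusted p = 4.2e-06). Crabp2, which delivers retinoic acid to its nuclear receptor, was at 75.2, 95.1 and 85.3 TPM in fresh lung and 15.4, 13 and 14.6 TPM in the explants (log2 fold change -2.55 ± 0.20, adjusted p = 1.6e-05). Its explant libraries lay close together. Aldh1a2, the main synthetic enzyme of embryonic mesenchyme and mesothelium, was at 99.3, 91.8 and 98.6 TPM in fresh lung and 46.1, 32.6 and 36.2 TPM in the explants (log2 fold change -1.29 ± 0.18, adjusted p = 5.3e-04). Cyp26b1, a degrading enzyme, was at 6.46, 7.42 and 4.86 TPM in fresh lung and 1.92, 0.87 and 0.79 TPM in the explants (log2 fold change -2.35 ± 0.35, adjusted p = 5.6e-04). Every explant library was below every fresh one for these 4. Crabp1, a second carrier, was at 19.8, 12.8 and 9.04 TPM in fresh lung and 71.5, 25.2 and 35.6 TPM in the explants (log2 fold change 1.67 ± 0.39, adjusted p = 0.00796). Rbp4, the retinol carrier of plasma, was at 5.06, 3.99 and 4.48 TPM in fresh lung and 24.5, 17.8 and 18.2 TPM in the explants (log2 fold change 2.14 ± 0.28, adjusted p = 2.8e-04).

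In all, 6 of 16 tested retinoic acid genes rose and 4 fell, with 3 rises without Control 1 or E11.5 3. The call of Aldh1a1, an enzyme with the same activity as Aldh1a2, was lost without either (adjusted p = 0.0633 and 0.0718). Of 12 tested insulin-like growth factor genes 3 rose, Irs1 among them, and 0 fell, and 5 rose without Control 3. Igf1 was at 32.1, 29.4 and 34.0 TPM in fresh lung and 117, 83.8 and 90.4 TPM in the explants (log2 fold change 1.31 ± 0.10, adjusted p = 1.0e-05). The binding protein Igfbp7, which vessels and stroma secrete, was at 1.21, 1.72 and 3.16 TPM in fresh lung and 12.9, 18.3 and 21.8 TPM in the explants (log2 fold change 3.17 ± 0.43, adjusted p = 3.7e-04). Both were higher in every explant library. Of 13 tested Hippo pathway genes 4 rose (Ccn1, Ccn2, Lats1 and Wwtr1) and 2 fell (Tead4 and Lats2). Without E11.5 3, 2 rose, and the falls numbered 0 without Control 1 or Control 2 and 1 without any 1 fresh library. Ccn2, a matricellular target of YAP, was at 5.64, 5.47 and 2.69 TPM in fresh lung and 13.3, 7.37 and 9.93 TPM in the explants (log2 fold change 1.21 ± 0.28, adjusted p = 0.00713).

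Transcription factors of lung mesenchyme moved both ways. Of 26 tested 9 fell and 6 rose, with a median of -0.05, 0.05 without Control 3 and 0.03 without E11.5 1, and 3 rises without E11.5 1 or E11.5 3. Osr1, a zinc finger factor of foregut mesenchyme, was at 74.7, 79.6 and 65.5 TPM in fresh lung and 32.9, 23.6 and 23.0 TPM in the explants (log2 fold change -1.43 ± 0.18, adjusted p = 1.9e-04). Its paralogue Osr2 was at 0.59, 0.20 and 0.40 TPM in fresh lung and 17.2, 8.89 and 2.77 TPM in the explants (log2 fold change 4.66 ± 0.82, adjusted p = 0.00187). The pair thus moved in opposite directions, with no overlap of the groups for either gene. Nkx6-1, a homeodomain factor, was at 8.81, 16.5 and 10.9 TPM in fresh lung and 4.33, 1.46 and 1.45 TPM in the explants (log2 fold change -2.29 ± 0.37, adjusted p = 9.2e-04). Prrx2, a homeodomain factor of limb and visceral mesenchyme, was at 24.4, 22.2 and 27.2 TPM in fresh lung and 15.8, 6.53 and 8.43 TPM in the explants (log2 fold change -1.03 ± 0.26, adjusted p = 0.0101). Meox2, of mesoderm, was at 9.0, 5.99 and 7.61 TPM in fresh lung and 14, 17.8 and 10.6 TPM in the explants (log2 fold change 0.94 ± 0.20, adjusted p = 0.00394).

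HOX genes and their MEIS and PBX partners, which encode position along the body axis, fell. Of 23 tested 12 fell and 0 rose, with a median log2 fold change of -0.66. Hoxb1, the 3′-most gene of the B cluster (chromosome 11, 96365752 to 96368256), was at 1.20, 4.08 and 4.64 TPM in fresh lung and 0 TPM in all 3 explant libraries (at least 9.22-fold lower, adjusted p = 0.00134). Every fresh library held reads of Hoxb1 and no explant library did.

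Regulators of developmental timing fell as a group. LIN28 proteins and the chromatin protein HMGA2 are high in early embryos and are repressed by the let-7 microRNAs as tissues mature, while LIN28 blocks the maturation of let-7. Of 18 tested members of this heterochronic list 15 fell and 0 rose, with a median log2 fold change of -0.95. Lin28b (chromosome 10, 45376620 to 45486395) was at 8.94, 9.9 and 10.8 TPM in fresh lung and 1.24, 0.95 and 1.07 TPM in the explants (log2 fold change -3.26 ± 0.17, adjusted p = 2.0e-06). Hmga2 (chromosome 10, 120361275 to 120476469) was at 294, 485 and 438 TPM in fresh lung and 66.9, 46.5 and 41.6 TPM in the explants (log2 fold change -2.94 ± 0.21, adjusted p = 1.2e-05). Lin28a was at 0.83, 2.74 and 2.22 TPM in fresh lung and 0.05, 0 and 0 TPM in the explants (1 count over the explant libraries, 97.1-fold lower, counting interval 17.4 to 3836, adjusted p = 4.5e-04). All 3 explant libraries lay close together for Lin28b and Hmga2, far below the fresh ones.

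The microRNAs themselves were not measured by these libraries. Their mature sequences are shown because all 9 share 1 seed, bases 2 to 8, in capitals, and differ outside it. Sequences are from RefSeq (GRCm38.p6), 5′ to 3′.
let-7a-5p: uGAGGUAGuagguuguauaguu
let-7b-5p: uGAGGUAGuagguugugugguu
let-7c-5p: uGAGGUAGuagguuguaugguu
let-7d-5p: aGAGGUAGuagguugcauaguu
let-7e-5p: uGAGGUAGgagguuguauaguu
let-7f-5p: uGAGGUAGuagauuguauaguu
let-7g-5p: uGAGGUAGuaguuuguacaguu
let-7i-5p: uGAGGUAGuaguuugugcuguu
miR-98-5p: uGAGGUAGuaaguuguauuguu
A 3′ UTR that holds the complement of the seed, CTACCTC, can pair with any of them. The seed match was looked for in the longest annotated 3′ UTR of each gene (GENCODE M21). Of the 18 heterochronic genes, many of them known let-7 targets, 14 held at least 1, against 11.1% of 13386 tested genes. The first match in each of 4 genes that fell, chosen after their values were seen, is shown with the 15 bases before it, the match in capitals.
Lin28b: acccgggcgggaagtCTACCTC
Hmga2: gccgacattcaatttCTACCTC
Trim71: aacattgcctaagtcCTACCTC
Igf2bp1: gctgtgcgaagtaaaCTACCTC
Each of these UTRs holds 4 matches. Trim71, a ubiquitin ligase of stem cells, and Igf2bp1, an RNA-binding protein of fetal tissue, had log2 fold changes of -1.01 and -1.45. Nr6a1, an orphan nuclear receptor of early embryos, held 8 matches and did not pass.

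The relation was then described over all genes, also after the values were seen. The median log2 fold change was 0.05 for 11906 genes without a match, 0.01 for 1293 with 1, -0.10 for 175 with 2 or 3 and -0.81 for 12 with 4 or more. The shares that fell were 16.1%, 20.0%, 26.3% and 58.3%, and the shares that rose 23.5%, 21.2%, 16% and 8.33%. Of the 12 genes 5 are on the heterochronic list, and genes are not independent replicates. UTR length moved with the count, from a median of 1162.5 bases without a match to 2272 with 1 and 4356.5 with 4 or more, and its part was not tested.

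**Figure D5:**
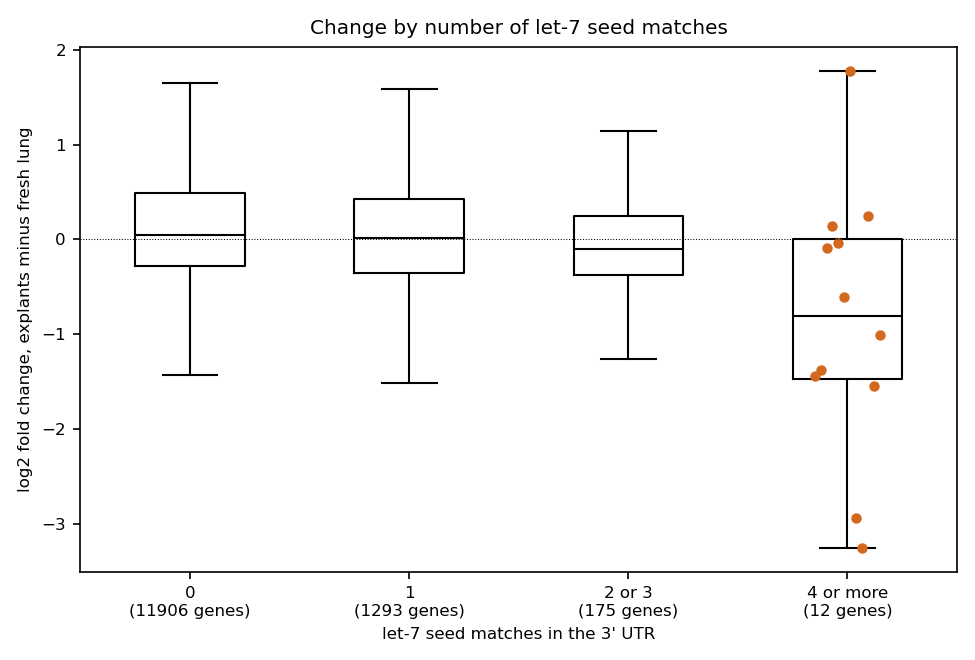
Log2 fold change (explants minus fresh lung) of 13386 tested genes by the number of let-7 seed matches in the longest annotated 3′ UTR. Boxes span the quartiles with the median as a line, whiskers reach the farthest value within 1.5 times the interquartile range, values beyond are not drawn, and orange points are the 12 genes with 4 or more matches, whose median is -0.81.

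Imprinted genes, many of which regulate fetal growth, moved both ways. Of 25 tested 5 rose (H19, Dlk1, Dcn, Sgce and Impact) and 9 fell. The maternally expressed noncoding RNA H19 (chromosome 7, 142575529 to 142578143) was at 2958, 2724 and 2618 TPM in fresh lung and 6019, 4870.1 and 3417 TPM in the explants (log2 fold change 0.81 ± 0.13, adjusted p = 9.8e-04). Igf2, its paternally expressed neighbour, was at 1324, 1248 and 1149 TPM in fresh lung and 2803, 1642 and 1102 TPM in the explants and did not pass (adjusted p = 0.181), but passed without Control 3 (log2 fold change 0.65, adjusted p = 0.0294). Dlk1, a Notch-like ligand of progenitors, was at 225, 171 and 195 TPM in fresh lung and 696, 462 and 541 TPM in the explants (log2 fold change 1.65 ± 0.18, adjusted p = 1.1e-04). The paternally expressed genes Peg3, Mest and Peg10 fell. Mest, a hydrolase-like protein of mesoderm, was at 801, 861 and 772 TPM in fresh lung and 347, 229.8 and 191 TPM in the explants (log2 fold change -1.63 ± 0.19, adjusted p = 1.5e-04). Peg10, a retrotransposon-derived gene, was at 90.2, 133 and 107 TPM in fresh lung and 46.1, 23.6 and 19 TPM in the explants (log2 fold change -1.88 ± 0.26, adjusted p = 6.9e-04). Imprinted state as such was not measured.

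Extracellular matrix genes rose. Mesenchymal cells lay down collagens and elastic fibres as the lung matures, on which muscle and airways later recoil. Of 22 tested collagen and interstitial matrix genes 17 rose and 1 fell, or 2 without Control 1, with a median log2 fold change of 1.05. The 3 chains of type VI collagen led them. Col6a1 was at 35.1, 16.2 and 20.6 TPM in fresh lung and 210.1, 163 and 166 TPM in the explants (log2 fold change 2.95 ± 0.24, adjusted p = 3.0e-05). Col6a2, its neighbour on chromosome 10, was at 42.2, 21.5 and 22.5 TPM in fresh lung and 264, 196 and 217 TPM in the explants (log2 fold change 3.01 ± 0.24, adjusted p = 2.9e-05). These neighbours had similar fitted rises. Col6a3 was at 9.66, 3.23 and 4.74 TPM in fresh lung and 113, 75.8 and 90.0 TPM in the explants (log2 fold change 4.13 ± 0.53, adjusted p = 9.4e-04). Col1a1, of type I collagen, was at 149.7, 94.5 and 80.8 TPM in fresh lung and 497, 299 and 341 TPM in the explants (log2 fold change 1.85 ± 0.24, adjusted p = 3.3e-04). The proteoglycan gene Vcan went the other way, at 184, 186 and 190.3 TPM in fresh lung and 172, 126 and 133 TPM in the explants (log2 fold change -0.47 ± 0.09, adjusted p = 0.00251). E11.5 1 was the highest fresh library for every collagen chain named, and still below the explants.

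All 10 tested small leucine-rich proteoglycans and their relatives rose, with a median log2 fold change of 3.36. These proteins bind collagen fibrils and mark fibroblasts. Dcn, decorin, was at 25, 11.6 and 12.2 TPM in fresh lung and 141, 126 and 311 TPM in the explants (log2 fold change 3.66 ± 0.53, adjusted p = 0.00182). Dpt, dermatopontin, was at 0 TPM in all 3 fresh libraries and 2.62, 2.19 and 3.82 TPM in the explants (at least 6.82-fold higher, adjusted p = 2.6e-04). Together with Aspn, given above, these were highest in Control 3. The fitted values of Aspn and Dpt depend on the prior count, and with both at their bounds the median was 3.16.

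Elastic fibre genes showed 12 rises and 2 falls among 17 tested. Eln, tropoelastin (chromosome 5, 134702593 to 134747323), was at 23.0, 6.27 and 8.94 TPM in fresh lung and 198, 152 and 128 TPM in the explants (log2 fold change 3.70 ± 0.45, adjusted p = 6.0e-04). Loxl1, an enzyme that cross-links elastin, was at 4.77, 3.0 and 3.85 TPM in fresh lung and 31.5, 14.3 and 19.7 TPM in the explants (log2 fold change 2.52 ± 0.26, adjusted p = 7.1e-05). Loxl2, a relative that acts mostly on basement membrane collagen, was at 36.2, 40.0 and 39.2 TPM in fresh lung and 22.0, 17.5 and 19.1 TPM in the explants (log2 fold change -0.93 ± 0.12, adjusted p = 2.2e-04). The latent TGF-beta binding proteins were split in the same way. Ltbp2 was at 1.19, 0.70 and 0.21 TPM in fresh lung and 3.17, 3.51 and 1.77 TPM in the explants (log2 fold change 3.32 ± 0.40, adjusted p = 1.5e-04). Ltbp1 was at 65.9, 81.0 and 78.6 TPM in fresh lung and 47.4, 37.8 and 35.8 TPM in the explants (log2 fold change -0.79 ± 0.13, adjusted p = 0.00101). For each pair of relatives, the groups did not overlap in either gene.

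Basement membrane genes changed by isoform. Of 22 tested 16 rose and 1 fell, or 2 without Control 1. Lama1, the embryonic laminin alpha chain, was at 6.36, 10.1 and 10.1 TPM in fresh lung and 2.64, 3.93 and 1.38 TPM in the explants (log2 fold change -1.90 ± 0.24, adjusted p = 2.0e-04). Lamb3, of the laminin under mature epithelia, was at 4.27, 2.99 and 3.07 TPM in fresh lung and 12.2, 14.2 and 9.94 TPM in the explants (log2 fold change 2.13 ± 0.20, adjusted p = 3.6e-05). Col4a3 and Col4a4, 2 chains of the collagen IV network that lung and kidney barriers acquire late, were at low levels. Col4a3 was at 0.60, 0.49 and 0.30 TPM in fresh lung and 2.20, 1.42 and 1.92 TPM in the explants (log2 fold change 2.53 ± 0.48, adjusted p = 0.00223). Col4a4 was at 1.40, 0.47 and 1.07 TPM in fresh lung and 2.68, 3.5 and 5.03 TPM in the explants (log2 fold change 2.11 ± 0.35, adjusted p = 0.00147). Every explant library was above every fresh one for these 3 genes, and below for Lama1.

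Matrix proteases and their relatives had 11 rises and 2 falls among 22 tested. The 2 activators of plasminogen moved apart. Plau, urokinase, was at 6.33, 4.10 and 4.05 TPM in fresh lung and 28.4, 22.7 and 33.5 TPM in the explants (log2 fold change 2.59 ± 0.24, adjusted p = 3.7e-05). Plat, the tissue-type activator, was at 55.6, 49.5 and 47.4 TPM in fresh lung and 16.2, 14.1 and 19.9 TPM in the explants (log2 fold change -1.56 ± 0.20, adjusted p = 2.5e-04). Neither gene had overlapping libraries. Adamts2, which trims procollagen, was at 1.52, 0.73 and 1.27 TPM in fresh lung and 6.70, 6.06 and 9.19 TPM in the explants (log2 fold change 3.10 ± 0.34, adjusted p = 1.3e-04). Adamts20, a versican-cleaving protease, was at 6.31, 8.98 and 8.5 TPM in fresh lung and 2.01, 1.69 and 2.53 TPM in the explants (log2 fold change -1.85 ± 0.27, adjusted p = 4.5e-04). The direction of Adamts20 was that of Vcan.

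Smooth muscle actin and a few other smooth muscle genes rose. Airway smooth muscle forms around the proximal tubes during these stages. Of 16 tested 4 rose, Cnn1 among them, and 2 fell, Cald1 and Tpm1, shares near the 21.1% and 16.6% of all genes tested, with a median log2 fold change of 0.49. Acta2, smooth muscle actin, was at 210.1, 103 and 121 TPM in fresh lung and 405, 276 and 247 TPM in the explants (log2 fold change 1.19 ± 0.26, adjusted p = 0.00724). Tagln, an actin-binding protein, was at 52.7, 35.1 and 32.3 TPM in fresh lung and 94.8, 80.1 and 67.2 TPM in the explants (log2 fold change 1.15 ± 0.13, adjusted p = 1.1e-04). Both were highest in Control 1 among the explants. Mylk, the kinase that triggers contraction, was at 61.4, 34.6 and 49.6 TPM in fresh lung and 127, 118 and 90.2 TPM in the explants (log2 fold change 1.22 ± 0.14, adjusted p = 1.3e-04). Cald1, caldesmon, which nonmuscle cells express too, was at 357, 377 and 371 TPM in fresh lung and 216, 168 and 119 TPM in the explants (log2 fold change -1.17 ± 0.13, adjusted p = 8.2e-05). The list moved with single libraries. Without Control 3, 8 rose and the median was 0.82. Without Control 1 the median was 0.08, and without E11.5 2, 1 fell.

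Mesothelial genes showed no common direction. Of 12 tested 4 rose (Krt19, Muc16, Gpm6a and Nkain4) and 3 fell (Wt1, Bnc1 and Aldh1a2). Wt1, the defining transcription factor of lung mesothelium, was at 22.7, 16 and 18.7 TPM in fresh lung and 7.16, 8.58 and 8.20 TPM in the explants (log2 fold change -1.21 ± 0.27, adjusted p = 0.00531). The libraries did not overlap. Krt19 and Muc16 are epithelial genes too. The rises numbered 1 without Control 2, E11.5 2 or E11.5 3 and 2 without Control 3.

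Cartilage, heart muscle and liver genes were highest in Control 1 and, among fresh libraries, in E11.5 1. Of 14 tested cartilage genes 5 rose (Col9a2, Col11a1, Col11a2, Cnmd and Epyc) and 2 fell (Sox6 and Hapln1), with a median of 0.86. Over 15 genes the median was 0.29 without Control 1 and 0.51 without E11.5 1. There were 3 rises without Control 1, E11.5 2 or E11.5 3, and 1 fall without Control 2, Control 3, E11.5 2 or E11.5 3. Sox6, a partner of Sox9, was at 16, 11.4 and 12.7 TPM in fresh lung and 9.59, 5.62 and 8.62 TPM in the explants (log2 fold change -0.58 ± 0.15, adjusted p = 0.0106). Of 12 tested heart muscle genes 2 rose, Myh7 and Actc1, and 1 fell, with 1 rise without Control 1, Control 2, E11.5 2 or E11.5 3. Without Control 1, 7 of 13 fell, and the median went from -0.25 to -1.64. It was 0.16 without Control 2, 0.07 without Control 3, 0.28 without E11.5 1, -0.53 without E11.5 2 and -0.46 without E11.5 3. Heart muscle also sheathes the pulmonary veins in mice. Myh7, a cardiac and slow muscle myosin, was at 1.75, 0.10 and 1.06 TPM in fresh lung and 8.86, 5.45 and 6.70 TPM in the explants (log2 fold change 4.09 ± 0.47, adjusted p = 1.4e-04). Ryr2, the cardiac calcium release channel, was at 2.36, 5.25 and 4.35 TPM in fresh lung and 1.67, 1.03 and 0.55 TPM in the explants (log2 fold change -1.86 ± 0.35, adjusted p = 0.00251). Both kept their calls without Control 1. The 5 tested liver genes had a median of 2.14, or 0.41 without Control 1, with 2 rises, the plasma carriers Trf and Rbp4, and 0 falls. There was 1 fall without Control 1, and 1 rise without any 1 fresh library.

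Several nerve genes rose and the glial factor Sox10 fell. Neural crest cells enter the lung with the vagus and form ganglia along the airways, with neurons and glia from the same precursors. Of 22 tested 9 rose and 2 fell, with a median log2 fold change of 0.69. Prph, the neurofilament peripherin of autonomic neurons, was at 0.43, 0.88 and 0 TPM in fresh lung and 11.9, 6.55 and 34.0 TPM in the explants (log2 fold change 5.40 ± 0.95, adjusted p = 0.00276). Stmn2, a microtubule regulator of growing axons, was at 7.32, 2.85 and 2.06 TPM in fresh lung and 20.6, 14.5 and 60.7 TPM in the explants (log2 fold change 3.47 ± 0.67, adjusted p = 0.0051). Both were highest in Control 3. The defining glial and crest factor Sox10 was at 7.33, 8.5 and 5.23 TPM in fresh lung and 1.63, 0.34 and 0.96 TPM in the explants (log2 fold change -2.55 ± 0.47, adjusted p = 0.00187). The groups separated for these 3 genes. Without Control 3 the median was 0.34 and 4 fell, and without E11.5 3 5 rose.

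Genes restricted to fat cells were at 0.42 TPM or less in every library. Of the 10 listed 4 were tested and all 4 rose, Pparg, Fabp4, Lpl and Cebpa, each of which other cells in lung share. Adipoq, Cidec, Cfd, Retn and Lep were at 0 in every explant library, and Plin1 was at 0.14 TPM in Control 2 and 0 in the other explants. Pparg, a lipid-sensing nuclear receptor of fat cells, macrophages and lung epithelium, was at 0.94, 0.15 and 0.14 TPM in fresh lung and 4.46, 6.31 and 3.21 TPM in the explants (log2 fold change 4.17 ± 0.52, adjusted p = 2.0e-04). Skeletal muscle genes and genes of thyroid and oesophagus had 2 tested members each, with 1 rise in each list, the myosin Myh8 and the foregut factor Barx1. Both rises were lost in the fits without Control 1, E11.5 1 or E11.5 3.

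Proliferation genes fell by modest amounts. Of 42 tested genes of G2 and mitosis 29 fell and 1 rose, with a median log2 fold change of -0.44. Mki67, the proliferation marker Ki-67 (chromosome 7, 135689784 to 135716361), was at 141, 156 and 156 TPM in fresh lung and 104, 123 and 83.4 TPM in the explants (log2 fold change -0.51 ± 0.12, adjusted p = 0.00745). Cdca8, of the chromosomal passenger complex, was at 124, 144 and 130.2 TPM in fresh lung and 68.0, 80.5 and 49.8 TPM in the explants (log2 fold change -0.66 ± 0.08, adjusted p = 2.2e-04). Bub1b, the spindle checkpoint kinase BUBR1, was at 99.7, 104 and 99.9 TPM in fresh lung and 64.8, 69.5 and 46.5 TPM in the explants (log2 fold change -0.65 ± 0.10, adjusted p = 5.9e-04). Every fresh library lay above every explant one, by a small margin for Mki67. The 1 rise, of the phosphatase gene Cdc25b, was lost without Control 1, Control 2, E11.5 1 or E11.5 3.

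Of 42 tested genes of the G1 to S step and DNA replication 23 fell and 1 rose, with a median of -0.33. Rrm2, a subunit of the reductase that supplies deoxynucleotides, was at 166, 198 and 213 TPM in fresh lung and 99.1, 97.3 and 66.7 TPM in the explants (log2 fold change -1.02 ± 0.12, adjusted p = 1.5e-04). Gins1, of the replicative helicase, was at 51.8, 63.2 and 53.5 TPM in fresh lung and 31.6, 30.7 and 36.0 TPM in the explants (log2 fold change -0.70 ± 0.16, adjusted p = 0.00571). Mcm10, which activates that helicase, was at 40.9, 49.6 and 42.6 TPM in fresh lung and 30.1, 33.4 and 28.1 TPM in the explants (log2 fold change -0.60 ± 0.13, adjusted p = 0.00425). The count of falls was sensitive to single libraries. It was 15 without Control 1 and without Control 2, 12 without E11.5 2 and 11 without E11.5 3, and the rise, of Tk1, was lost without either of the last 2.

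Promoters of these genes carry short motifs that the cell cycle complexes read, and a few are shown to set the sequence beside genes that fell. The mitotic motif CHR (TTTGAA or TTCGAA, either strand) was in 27 of 35 promoters of the G2 and mitosis list (77.1%), against 19.4% of all 27025 promoters and 13.8% of those of tested genes. The E2F motif (TTTCCCGC or TTTGGCGC, either strand) was in 11 of 34 promoters of the replication list (32.4%), against 1.63% and 2.95%. The 4 mitotic and 3 replication genes shown passed and had a match before the gene start. They were taken by size of fall, with genes of a part of the genome left out, so they need not be the largest falls. Each match to the list's motif is in capitals as it reads on the gene's strand.
Bub1b: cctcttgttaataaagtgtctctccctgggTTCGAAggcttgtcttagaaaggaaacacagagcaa
Kif2c: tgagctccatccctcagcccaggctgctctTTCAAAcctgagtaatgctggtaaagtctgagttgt
Mki67: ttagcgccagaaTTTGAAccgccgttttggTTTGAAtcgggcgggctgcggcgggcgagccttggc
Cdc20: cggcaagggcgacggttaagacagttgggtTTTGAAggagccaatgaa
Gins3: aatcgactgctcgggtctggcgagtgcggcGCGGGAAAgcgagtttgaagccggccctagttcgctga
Mcm5: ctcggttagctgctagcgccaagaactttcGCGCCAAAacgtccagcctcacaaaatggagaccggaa
Mcm6: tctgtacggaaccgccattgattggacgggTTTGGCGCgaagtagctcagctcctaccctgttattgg
The windows lie before the gene start at chr2:118597993-118598058, plus strand for Bub1b, chr4:117178840-117178905, minus strand for the microtubule depolymerase Kif2c, chr7:135716442-135716507, minus strand for Mki67 and chr4:118437344-118437391, minus strand for the APC activator Cdc20 (GRCm38.p6). Those of the helicase genes are chr8:95633488-95633555, plus strand for Gins3, chr8:75109330-75109397, plus strand for Mcm5 and chr1:128359715-128359782, minus strand for Mcm6. Bub1b carries TTCGAA and Mki67 TTTGAA, and the other strand of Kif2c reads TTTGAA. No factor binding was measured.

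The cell cycle inhibitors Cdkn1a and Cdkn2c rose. Of 21 tested cyclins, kinases and inhibitors 8 rose and 2 fell, with a median of 0.10. Cdkn1a, the inhibitor p21 (chromosome 17, 29090976 to 29100727), was at 2.62, 4.45 and 3.58 TPM in fresh lung and 28.7, 32.5 and 40.4 TPM in the explants (log2 fold change 3.25 ± 0.29, adjusted p = 3.7e-05). Cdkn2c, the inhibitor p18, was at 5.80, 3.48 and 3.68 TPM in fresh lung and 17, 15.7 and 10.4 TPM in the explants (log2 fold change 1.81 ± 0.20, adjusted p = 1.1e-04). Ccne1, cyclin E1 of the G1 to S step, was at 70.5, 62.3 and 60.6 TPM in fresh lung and 36.7, 47.7 and 32.2 TPM in the explants (log2 fold change -0.50 ± 0.12, adjusted p = 0.0079), and cyclin E2 fell with it. No explant library of Cdkn1a or Cdkn2c came near the fresh range. The count that rose was 5 without Control 2 or E11.5 2 and 4 without E11.5 3, and 1 fell without Control 3 or any 1 fresh library.

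Targets of p53, the factor that answers DNA damage and other stress, rose. Of 24 tested 17 rose and 0 fell, with a median log2 fold change of 1.25, and Cdkn1a is among them. Eda2r, a death-domain receptor on the X chromosome, was at 1.39, 1.07 and 1.16 TPM in fresh lung and 8.88, 11.3 and 18.4 TPM in the explants (log2 fold change 3.52 ± 0.48, adjusted p = 5.5e-04). Ccng1, cyclin G1, was at 29.5, 22.9 and 26.4 TPM in fresh lung and 66.4, 83.9 and 116 TPM in the explants (log2 fold change 1.85 ± 0.35, adjusted p = 0.00432). Gdf15, a stress-induced secreted factor, was at 0 TPM in all 3 fresh libraries and 2.42, 2.07 and 2.53 TPM in the explants (at least 4.25-fold higher, adjusted p = 9.2e-04). Eda2r and Ccng1 were highest in Control 3 and lowest in Control 1.

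Genes of the amino acid response, driven by ATF4 when amino acids or folding capacity run short, rose too. Of 29 tested 22 rose and 1 fell, or 2 without Control 2, with a median of 1.02. Nupr1, a small stress-induced chromatin protein (chromosome 7, 126623249 to 126630861), was at 1.17, 0 and 0.69 TPM in fresh lung and 28.4, 37.3 and 42.7 TPM in the explants (log2 fold change 6.18 ± 0.58, adjusted p = 5.2e-05). Slc7a3, a carrier of cationic amino acids, was at 1.37, 0.91 and 0.45 TPM in fresh lung and 10.7, 18.7 and 8.13 TPM in the explants (log2 fold change 3.72 ± 0.37, adjusted p = 5.1e-05). The exception was Wars, a tRNA synthetase, at 43.9, 49.1 and 51.3 TPM in fresh lung and 44.9, 38.4 and 28.6 TPM in the explants (log2 fold change -0.44 ± 0.10, adjusted p = 0.00657), whose TPM groups overlapped. Of 20 tested genes of the unfolded protein response 3 rose (Herpud1, Syvn1 and Sel1l) and 1 fell (Hsp90b1), with a median of 0.04. Herpud1, of ER-associated degradation, was at 22.4, 21.6 and 16.2 TPM in fresh lung and 53.3, 46.8 and 41.3 TPM in the explants (log2 fold change 1.36 ± 0.13, adjusted p = 3.8e-05). It was the 1 rise of that list kept without Control 2 or any 1 fresh library, and the falls numbered 0 without Control 1, E11.5 2 or E11.5 3 and 2 without Control 2.

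Immediate-early genes, which respond within minutes to growth factors and handling, rose. Of 19 tested 13 rose and 0 fell, with a median of 1.40, and 2 fell without Control 1 and 1 without Control 2. Egr1 was at 5.28, 3.44 and 3.40 TPM in fresh lung and 57.4, 38.4 and 24.2 TPM in the explants (log2 fold change 3.35 ± 0.38, adjusted p = 2.5e-04). Fos was at 4.58, 0.48 and 1.31 TPM in fresh lung and 13.6, 15.9 and 11.9 TPM in the explants (log2 fold change 2.69 ± 0.56, adjusted p = 0.00516). Ier3 was at 2.14, 1.21 and 1.67 TPM in fresh lung and 5.25, 8.99 and 17.7 TPM in the explants (log2 fold change 2.74 ± 0.54, adjusted p = 0.00291). The 3 genes had their highest explant value in different libraries. How long each tissue was handled before RNA extraction is not stated in the labels, and its part was not tested.

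Heat shock genes moved both ways. Of 15 tested 5 rose (Hspb1, Hspb8, Cryab, Bag3 and Hspa1b) and 5 fell (Hsph1, Hsp90aa1, Hsp90ab1, Hspd1 and Hspe1). Hspb8, a small chaperone of muscle and stressed cells, was at 7.37, 4.12 and 5.19 TPM in fresh lung and 26.3, 18.0 and 10.6 TPM in the explants (log2 fold change 1.72 ± 0.26, adjusted p = 6.8e-04). Cryab, another, was at 7.94, 4.34 and 3.0 TPM in fresh lung and 19.6, 9.24 and 14.6 TPM in the explants (log2 fold change 1.69 ± 0.41, adjusted p = 0.00813). The libraries did not overlap for either. Hsph1, HSP110, was at 132, 173 and 155 TPM in fresh lung and 84.5, 89.1 and 36.9 TPM in the explants (log2 fold change -1.14 ± 0.25, adjusted p = 0.00597). Hsp90aa1 was at 1029.7, 1234 and 1190.2 TPM in fresh lung and 522, 699 and 549 TPM in the explants (log2 fold change -0.75 ± 0.18, adjusted p = 0.0073). Hspd1, the mitochondrial chaperonin, was at 553, 659 and 661 TPM in fresh lung and 368, 382 and 319.9 TPM in the explants (log2 fold change -0.80 ± 0.14, adjusted p = 0.00123). The list median of 0.10 was -0.23 without Control 3, -0.06 without E11.5 2, 0.01 without E11.5 1 and 0.17 without E11.5 3.

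Oxidative stress and metal genes had 10 rises and 1 fall among 22 tested, or 3 falls without Control 3. Hmox1, which degrades haem, was at 10.5, 9.02 and 9.89 TPM in fresh lung and 48.7, 33.0 and 37.0 TPM in the explants (log2 fold change 2.04 ± 0.18, adjusted p = 2.3e-05). Gstm1, a glutathione transferase, was at 14.3, 12.8 and 13 TPM in fresh lung and 48.4, 43.4 and 45.3 TPM in the explants (log2 fold change 1.81 ± 0.15, adjusted p = 1.8e-05). Gstm1 varied little within each group. Mt1, a metallothionein, was at 14.7, 28.1 and 18.7 TPM in fresh lung and 102, 46.8 and 50.8 TPM in the explants (log2 fold change 1.66 ± 0.32, adjusted p = 0.00256). Gpx1, a glutathione peroxidase that red cells express highly, was at 277, 325 and 330.2 TPM in fresh lung and 91.1, 65.9 and 94.9 TPM in the explants (log2 fold change -1.74 ± 0.19, adjusted p = 1.1e-04). Its fall went with that of the red cell list, whose part in it was not tested.

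Genes of sterol and fatty acid metabolism rose. Of 25 tested cholesterol genes 15 rose and 0 fell, with a median of 0.64, and 9 rose without E11.5 2. Msmo1, a sterol oxidase of the synthetic pathway, was at 58.3, 66.0 and 79.2 TPM in fresh lung and 136, 141 and 158 TPM in the explants (log2 fold change 1.24 ± 0.20, adjusted p = 0.00123). Of 26 tested fatty acid and lipid storage genes 17 rose and 0 fell. Pnpla2, the triglyceride lipase, was at 5.56, 3.83 and 2.95 TPM in fresh lung and 17.7, 13 and 9.40 TPM in the explants (log2 fold change 1.81 ± 0.27, adjusted p = 5.8e-04). Explant and fresh libraries were apart for these genes, and Plin2 and Pparg, given above, belong here as well. Type 2 cells and lipid-laden phagocytes both use this machinery, and both marker lists rose in the same libraries. Their part was not tested.

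Glycolytic and hypoxia-responsive genes fell. A lung in the embryo at this stage is poorly oxygenated, and HIF factors raise glucose uptake and glycolysis when oxygen is low. Of 31 tested 15 fell and 4 rose, with a median of -0.39. Slc16a3, the lactate exporter MCT4 (chromosome 11, 120948480 to 120960868), was at 19.8, 31.9 and 27.4 TPM in fresh lung and 3.49, 2.90 and 2.23 TPM in the explants (log2 fold change -2.90 ± 0.28, adjusted p = 4.8e-05). Ankrd37, a direct HIF target, was at 10.2, 13 and 10.8 TPM in fresh lung and 3.56, 0.91 and 1.35 TPM in the explants (log2 fold change -2.18 ± 0.42, adjusted p = 0.00253). Eno1, the glycolytic enolase, was at 228, 280.0 and 270.4 TPM in fresh lung and 93.6, 84.9 and 83.1 TPM in the explants (log2 fold change -1.53 ± 0.12, adjusted p = 1.2e-05). The explant libraries differed little for Eno1, and all lay below the fresh range in the 3 genes. The rises were of Pfkp, Pfkfb4, Aldoc and Vegfa. Pfkp, a phosphofructokinase isoform, was at 7.15, 6.30 and 5.86 TPM in fresh lung and 13, 12.2 and 11.4 TPM in the explants (log2 fold change 0.93 ± 0.14, adjusted p = 6.4e-04). The count of rises was 2 without Control 3 and 1 without E11.5 2 or E11.5 3. Oxygen in culture and in the embryo was not measured.

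Genes of oxidative phosphorylation in the nucleus mostly did not pass. Of 33 tested 4 rose (Cox6a1, Cox4i1, Cox8a and Ndufa2) and 2 fell (Atp5b and Cycs), with a median of -0.02, 2 rises without E11.5 2, and no falls without Control 1, Control 2, E11.5 2 or E11.5 3. Cox6a1, a subunit of complex IV, was at 182, 200.0 and 172 TPM in fresh lung and 333, 239.6 and 201 TPM in the explants (log2 fold change 0.48 ± 0.12, adjusted p = 0.00842). Of the 13 protein genes of the mitochondrial genome 4 rose (mt-Co1, mt-Co3, mt-Atp6 and mt-Nd5), with 8 without Control 1 and 2 without Control 3, E11.5 2 or E11.5 3. All genes of that genome together took 8.18% to 10.2% of TPM in fresh lung and 10.6% to 11.7% in the explants.

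Ribosomal protein genes and the genes that build ribosomes went in opposite directions. Of 34 tested nucleolar and assembly genes 27 fell and 0 rose, with a median of -0.52. Ncl, nucleolin, was at 890.2, 1009.8 and 962 TPM in fresh lung and 475, 523 and 389.7 TPM in the explants (log2 fold change -0.995 ± 0.10, adjusted p = 5.3e-05). Dkc1, the enzyme that makes pseudouridine in ribosomal RNA, was at 116, 124 and 109.6 TPM in fresh lung and 78.7, 65.4 and 51.8 TPM in the explants (log2 fold change -0.85 ± 0.08, adjusted p = 4.9e-05). Npm1, nucleophosmin, was at 3012, 3394 and 2995 TPM in fresh lung and 1552, 1831 and 1865 TPM in the explants (log2 fold change -0.73 ± 0.16, adjusted p = 0.00481). Fresh libraries were above all explants in each case. Of 40 tested ribosomal protein genes 21 rose and 0 fell, with a median of 0.46. Rps19 was at 1244, 1073 and 1131 TPM in fresh lung and 1942, 1885 and 2527 TPM in the explants (log2 fold change 0.93 ± 0.20, adjusted p = 0.00463).

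The calls of ribosomal protein genes were unsteady. They numbered 33 without Control 1, 11 without Control 3, and 10, 6 and 8 without E11.5 1, 2 and 3. The median was 0.26 without Control 3, the library with the highest level of Rps19, Rps27 and Rps4x. The fall of the assembly genes kept its count within 1.5 times in each of these fits.

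Chromatin genes showed small changes. Of 16 tested genes of the DOT1L complex and its partners 2 rose (Aff1 and Aff4) and 2 fell (Mllt3 and Eaf1), with a median of 0.07. Dot1l, the histone H3 lysine 79 methyltransferase and the target of the drug tested elsewhere in the series, was at 23.1, 23.1 and 21.2 TPM in fresh lung and 30.04, 23.2 and 18.8 TPM in the explants (adjusted p = 0.205). Mllt3, the AF9 reader that binds DOT1L, was at 46.6, 43.7 and 39.7 TPM in fresh lung and 26.4, 26.9 and 30.8 TPM in the explants (log2 fold change -0.44 ± 0.10, adjusted p = 0.00734). In this list 1 member rose without Control 1 or E11.5 3, and 1 fell without E11.5 2. Of 34 other writers and erasers of histone methylation 8 fell and 4 rose (Kdm4b, Kdm4c, Kmt2d and Prdm16), with 5 falls without E11.5 2 or E11.5 3 and 1 or 2 rises without Control 1 or any 1 fresh library.

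Among them Ezh2, the H3 lysine 27 methyltransferase of dividing cells, was at 263, 288 and 300.4 TPM in fresh lung and 183, 189 and 139 TPM in the explants (log2 fold change -0.68 ± 0.10, adjusted p = 3.9e-04). Suv39h2, an H3 lysine 9 methyltransferase, was at 33.6, 39.2 and 38.6 TPM in fresh lung and 21.7, 16.9 and 10.6 TPM in the explants (log2 fold change -1.15 ± 0.16, adjusted p = 4.4e-04). Kdm4c, a demethylase, was at 9.35, 11 and 8.5 TPM in fresh lung and 14.7, 14.3 and 13 TPM in the explants (log2 fold change 0.68 ± 0.15, adjusted p = 0.00441). Proliferation genes fell over the same libraries, and their part in the fall of Ezh2 was not tested. Of 9 tested histone genes, from 26 in the table, 2 rose, Hist1h1c and Hist1h2bc, and 0 fell, or 1 without E11.5 1 or any 1 explant library. Hist1h1c, a linker histone whose RNA can be polyadenylated, was at 9.71, 4.37 and 5.80 TPM in fresh lung and 19.4, 19.1 and 16.9 TPM in the explants (log2 fold change 1.52 ± 0.34, adjusted p = 0.00656). Most histone RNA lacks a poly(A) tail, so its capture depends on how RNA was selected, on which the labels are silent.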

How the data were processed

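RNA-seq of whole mouse lung was deposited for 9 libraries, 3 fresh at E11.5, 3 control explants and 3 explants with EPZ5676. RSEM, Bowtie2 and the build mm10 appear in the submitters' processing notes without versions. The annotation and strand setting are not stated there or in the labels, so overlapping antisense genes cannot be told apart. The authors deposited expected counts per gene, 12.5% to 15.3% of which were not whole, and TPM. Both tables share 55286 gene IDs, and all IDs and symbols matched GENCODE M21. Gene coordinates come from that annotation (GRCm38), promoters and microRNAs from RefSeq (GRCm38.p6).

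Expected counts were rounded and fitted with edgeR 4.0.16 in R 4.3.3 (filterByExpr with a minimum count of 10, TMM scaling, robust quasi-likelihood F test, 6 residual degrees of freedom over 9 libraries, Benjamini-Hochberg adjustment over 15158 genes). TPM was used as deposited. On simulated counts of 14870 genes, recovery was 16.4% for 1.5-fold changes (67 genes), 65.7% for 2-fold (67) and 92.4% for 4-fold ones (66). False calls made up 7.94% of the calls. Only genes with enough counts were changed there, far fewer than passed in the data, and each gene had the same spread in every group. The rates therefore need not hold for the comparison made here. No 2 libraries of a group agreed within counting noise. Alternatives covered scaling, filters, DESeq2 1.42.0, limma 3.58.1 on log2(TPM + 1) and log2(TPM + 0.1), a replicate block and leaving out each library.

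The comparison, members and 64 gene lists were chosen with earlier results of these data known. The overall leaders had to pass, not overlap between groups and reach a mean of 5 TPM in the higher group. They were the 12 largest changes by fold, 8 by TPM difference and 4 by smallest p each way. From each list came up to 3 genes each way that passed at a mean of 1 TPM or more, whether or not the groups overlapped. Where too few of a list passed, its genes with the smallest p were taken. A few regulators were added whether or not they passed. A few genes that met the rule are not reported here. Other genes named, such as members of small counts and those beside printed sequences, were chosen after their values were seen.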

Additional observations from a re-analysis of the deposited data

How the results depend on the processing

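The counts of genes that rose and fell stayed within 1.5 times of 3202 and 2509 with RLE or upper-quartile scaling, DESeq2, no filter or a filter of 50 counts, a fit to the 6 libraries alone (14581 genes tested), and a newer quasi-likelihood method, which was chosen after seeing the data. Against a 2-fold limit 641 rose and 188 fell, by construction of that test. With limma on log2 TPM, 2021 rose and 2006 fell at a pseudocount of 0.1. At a pseudocount of 1, 1970 rose and 2105 fell, so more genes fell than rose there. The cause was not tested. Leaving out 1 library gave 2271 to 3200 that rose and 1648 to 2472 that fell, with 1 fewer library in the fit. Deviations of fresh and control libraries with the same replicate number had correlations of 0.030, -0.011 and 0.022. Pairs with unlike numbers ran from -0.068 to 0.050, and this does not show whether the numbers mark a shared litter or day. With a replicate block 3099 rose and 2570 fell. Of 273 named genes that passed, 211 passed in each of the 6 fits without 1 library, and 273 kept their direction in every alternative run.

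Some values turned sign, and the cause was not tested. Across the fits that left out 1 library, the log2 fold change ran from -0.10 to 0.40 for Sox9 (lowest without Control 1), -0.62 to 0.26 for Tnnt3 (highest without E11.5 2), -0.27 to 0.80 for Xist and -9.14 to 0.91 for Ddx3y (lowest without Control 3). Xist was also below 0 without Control 1, Control 2 or E11.5 3, and Ddx3y was at -0.41 without E11.5 1. With limma at pseudocounts of 0.1 and 1, Tnnt3 was at 0.22 and 0.17, Xist at -2.25 and -1.65 and Ddx3y at -2.07 and -1.24, and with the replicate block Xist was at -2.14 and Ddx3y at -1.31. The median of the heat shock list was -0.20 with 50 counts, -0.044 in the 6-library fit, -0.11 and -0.11 with limma, and -0.23 to 0.17 without 1 library. That of the DOT1L list was -0.052 and -0.050 with limma, and with no filter skeletal muscle was at -0.75 and foregut at -0.86. In all, the medians of 15 of 64 lists had the opposite sign in at least 1 alternative, 12 of them within 0.1 of 0 in the report's fit. Besides those given, the median ran over all alternatives from -1.64 to 0.82 for heart muscle, -0.41 to 0.32 for retinoic acid, -0.36 to 0.05 for pericytes, -0.32 to 0.05 for mesenchymal factors, -0.23 to 0.13 for Notch, -0.12 to 0.22 for insulin-like growth factors, -0.11 to 0.14 for Hippo targets, -0.11 to 0.13 for histone genes, -0.10 to 0.14 for the unfolded protein response, -0.09 to 0.14 for mesothelium and -0.09 to 0.04 for oxidative phosphorylation.

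Precision is limited by 3 libraries a group, by a lowest depth of 6509563 counts, and by a larger spread among explants (24.5%) than among fresh lungs (11%). Changes under 2-fold were often missed in simulation, where far fewer genes were changed than passed here, so recovery in these data may differ. A gene that did not pass is not shown to be equal.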
